A study of Mus musculus with 13 samples.

Results

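Gene expression of microglia, the macrophages that reside in brain tissue, was compared between 5xFAD mice and wild type (WT) mice that had both received an adeno-associated virus of the PHP.eB capsid carrying EGFP, a green fluorescent protein used here as the control cargo. These were 5 of the 13 libraries of the series, 3 from WT and 2 from 5xFAD, chosen by their column names. The other 8 libraries, all 5xFAD, came from mice given a circRNA vector (4) or with a PKR knockout (4). In the text their values are given beside a result only as a range. They also entered the filter on low values and the model's estimate of the spread. 5xFAD mice carry human transgenes, APP among them, with familial Alzheimer mutations driven by the neuronal Thy1 promoter, so the transgenes are expressed in neurons rather than in microglia. The labels give neither the age nor the sex of the mice, and they do not say whether each library came from a separate animal, so the p-values measure the spread between these libraries, which may be technical.

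The values are FPKM, fragments scaled to the length of the gene and the depth of the library, and 10817 of 19737 genes, those averaging 1 FPKM or more across the 13 libraries, were tested. Values are given in the order WT replicates 1, 2 and 3, then 5xFAD replicates 1 and 2. A log2 difference is 5xFAD minus WT on the scale log2(FPKM + 1), with its standard error, from a limma model over all 13 libraries, and a gene is said to have risen or fallen where its Benjamini-Hochberg adjusted p over all tested genes was under 0.05. This scale understates the change of genes near 1 FPKM. Where a single library is left out of a 5xFAD group of 2, the remaining one is assumed to vary like the other groups.

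Microglia survey brain tissue, engulf debris and digest it in lysosomes. Around amyloid plaques they pass into a disease-associated state, known for the TREM2 and APOE genes, lipid handling genes and loss of resting-state markers. The comparison here asks what else differs in that setting: the machinery of translation, digestion, energy supply and antigen display, and the surface receptors, channels and secreted proteins by which the cell meets its surroundings.

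Depth recovered from the spacing of low values was 47.23 to 50.45 M (mega) fragments in WT and 53.41 to 54.98 M fragments in 5xFAD. All 14 microglia markers passed the filter. P2ry12, the purine receptor of resting microglia, was at 421, 389 and 248 FPKM in WT and 244 and 241 FPKM in 5xFAD. The summed level of the 14 markers was 4716, 4794 and 3014 in WT and 3962 and 3680 in 5xFAD, so WT replicate 3 was the lowest of the 5 libraries and its microglial signal lay below both 5xFAD libraries.

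WT replicate 3 stood apart from the other WT libraries in RNA of neurons, astrocytes and oligodendrocytes. Markers of neurons, astrocytes, oligodendrocytes, endothelial and mural cells (the muscle-like cells of vessel walls) together summed to 901, 685 and 2538 FPKM in WT and 1153 and 1065 in 5xFAD. These were 0.663%, 0.556% and 2.01% of all FPKM in WT and 0.762% and 0.766% in 5xFAD, against 0.356% to 0.847% in the other 5xFAD libraries. The difference of the means was -266 FPKM with an exact two-sided permutation p of 1.0, where 2 libraries against 3 cannot go below 0.1. With WT replicate 3 set aside, both 5xFAD libraries lay above both remaining WT libraries in this sum. Markers of choroid plexus and ependymal cells, which line the ventricles, ran otherwise and summed to 2704, 2099 and 1072 in WT and 789 and 574 in 5xFAD. With these added, the sums were 3604, 2785 and 3610 FPKM in WT and 1942 and 1640 FPKM in 5xFAD, so both 5xFAD libraries lay below every WT library. Most of the choroid plexus and ependymal sum was the transcript Ttr, which did not pass with all libraries. The order with these markers added therefore rests largely on Ttr. Another marker of that list, Ccdc153, was highest among WT in replicate 3. Counts over the gene lists are given with and without WT replicate 3. The marker covariate is the mean log2 level of the neuron, astrocyte, oligodendrocyte, endothelial and mural markers. Counts with it, or with all libraries scaled to the same FPKM sum, are added where that moved a count by over 1.5 times. As a single pooled value, the covariate cannot adjust for cell types that moved in opposite directions, and it leaves out choroid plexus and ependymal markers.

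**Figure D1:**
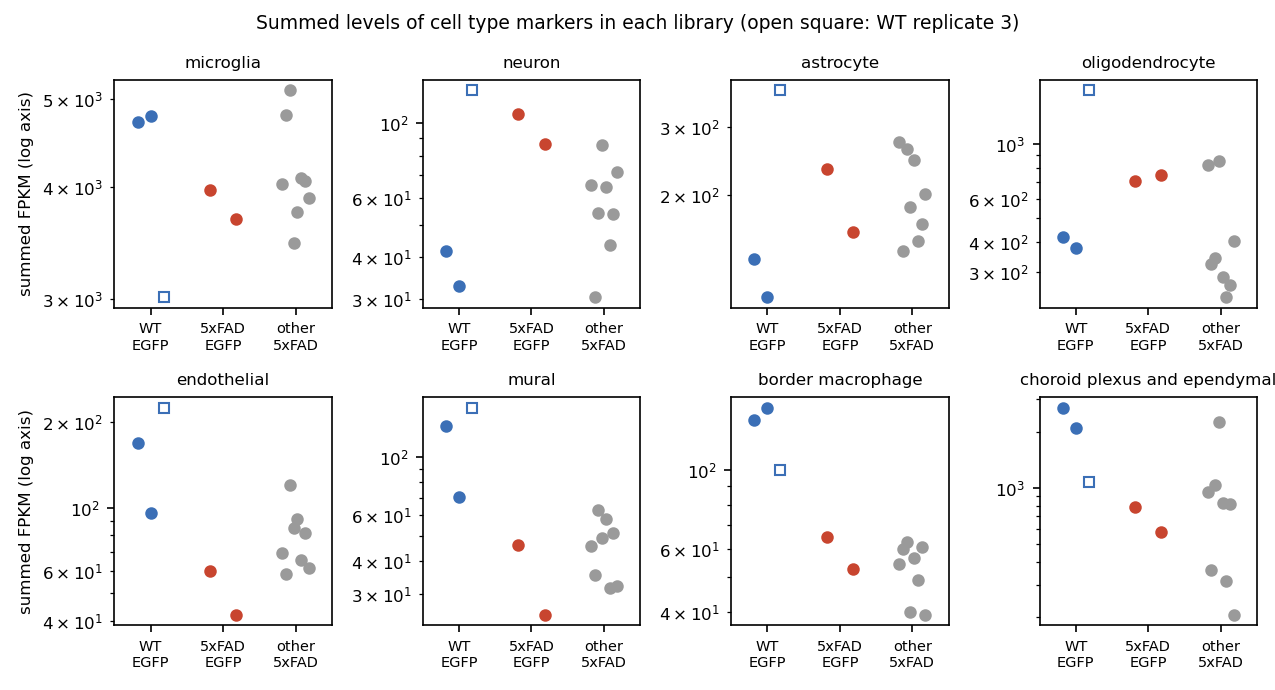
Summed FPKM of the markers of 8 cell types (log axis) in the 3 WT EGFP libraries (blue, WT replicate 3 as an open square), the 2 5xFAD EGFP libraries (red) and the 8 other 5xFAD libraries (grey). WT replicate 3 is the lowest library in microglia markers and the highest in neuron, astrocyte, oligodendrocyte, endothelial and mural markers.

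The cell types did not move together. Oligodendrocyte markers summed to 420, 378 and 1660 in WT and 707 and 750 in 5xFAD, and neuron markers to 41.6, 32.8 and 125 in WT and 106 and 86.7 in 5xFAD. None of the 10 tested oligodendrocyte and 7 tested neuron markers passed in the main limma fit, while 5 and 6 of them rose without WT replicate 3. With the marker covariate, which is itself built in part from these markers, 8 and 7 of them rose. Vascular markers ran the other way and were lower in both 5xFAD libraries than in any WT library, as described further on. Markers of monocytes summed to at most 1.54 FPKM in any of the 5 libraries, those of T and NK cells to at most 0.701 and those of B cells to at most 0.108, so these cells were near the floor of the measurement. Red cell globin markers were uneven among the WT libraries, at 36.3, 3.01 and 19.1 in WT and 5.79 and 8.81 in 5xFAD, and none of 4 passed with or without WT replicate 3 in limma. In bulk RNA, fewer cells of a type and less RNA per cell cannot be told apart.

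Of the 10817 genes, 827 rose (7.65%) and 687 fell (6.35%). At least a 2-fold difference on the log2 scale was found for 246 of the raised and 176 of the lowered genes, and for 287 and 133 without WT replicate 3. Without WT replicate 3 the counts were 969 raised (8.96%) and 1029 lowered (9.51%). The share of each gene list, given in parentheses below, is read against 7.65% raised and 6.35% lowered among all tested genes. Of the main calls 719 raised and 572 lowered were kept, while 108 and 115 were lost and 250 and 457 were added. WT replicate 3 was the highest WT library in 44.7% of lowered genes, 25.9% of raised genes and 27.9% of all tested genes. The filter averages over 13 libraries, 10 of them 5xFAD, so a gene high in 5xFAD passes it more easily, and with no filter 869 genes rose and 1030 fell. Rescaling every library to the same FPKM sum moved the median of all genes from -0.03 to -0.17 and turned the split of calls from 827 raised and 687 lowered into 708 raised and 3001 lowered. With the 2 groups fitted alone 386 genes rose and 123 fell. The counts by list below take their spread from all 13 libraries and were often smaller in that fit. The count of lowered genes fell to 79 without 5xFAD replicate 2, to 275 without 5xFAD replicate 1 and to 336 without WT replicate 1, and the count of raised genes to 391 without 5xFAD replicate 1 and 487 without 5xFAD replicate 2.

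**Figure D2:**
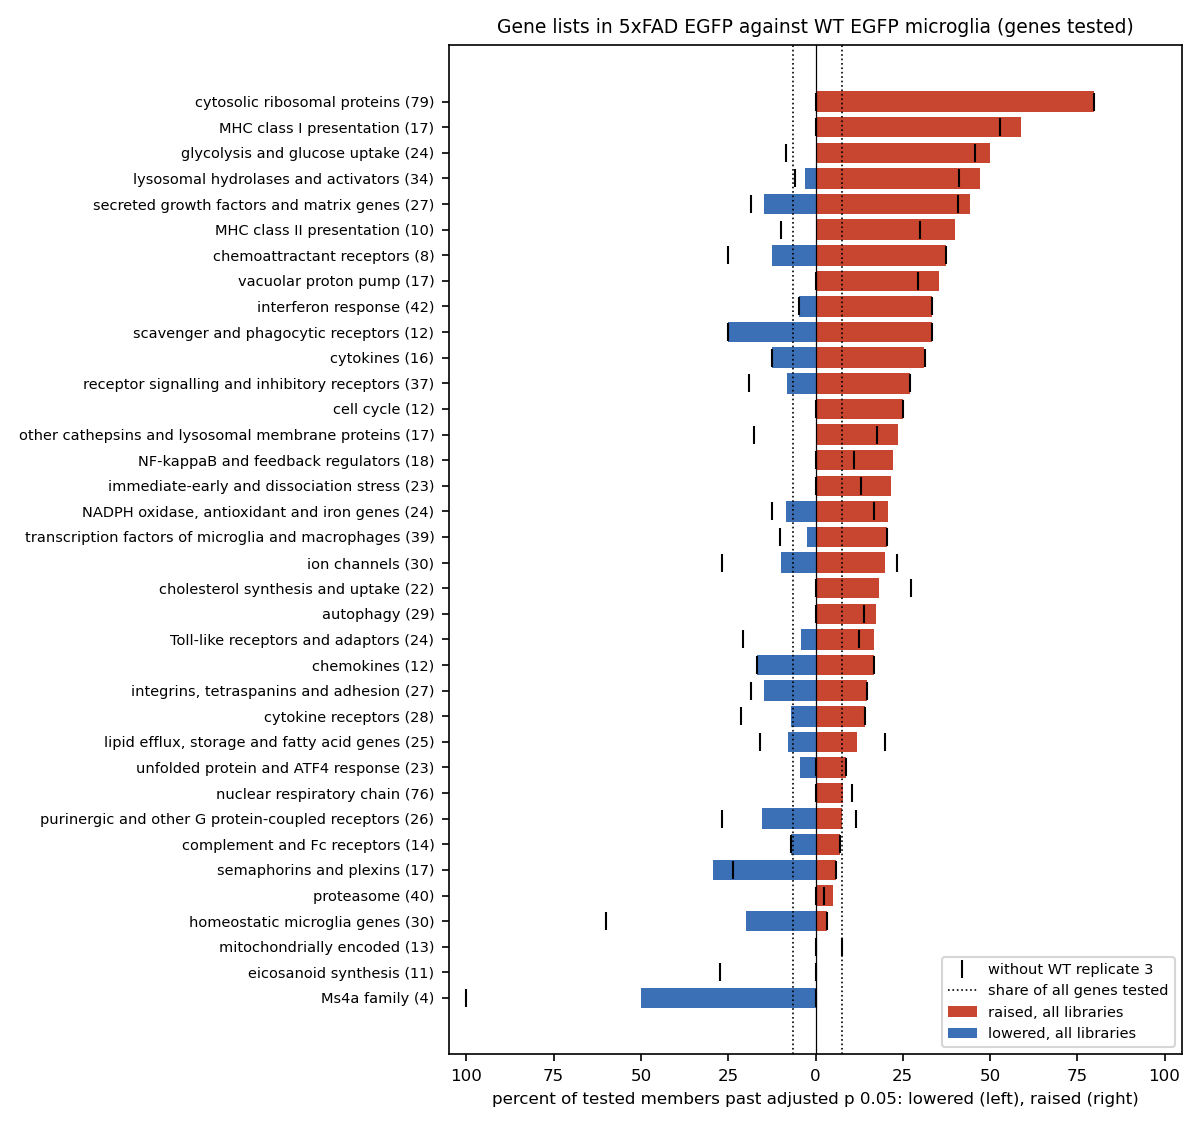
Share of the tested members of each gene list that rose (right, red) or fell (left, blue), with black ticks for the shares without WT replicate 3 and dotted lines for the share of all tested genes. Among the lists drawn, ribosomal protein genes have the highest raised share and Ms4a genes, of which 4 were tested, the highest lowered share, and homeostatic genes go from 6 to 18 lowered of 30 without WT replicate 3.

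The 12 genes that rose most outside the established disease-associated list included cytoskeleton, matrix, mitochondrial, immune checkpoint and metabolite receptor genes. Of that list itself 36 of 37 tested members rose (37 without WT replicate 3), with a median log2 difference of 2.07, and it is not described further. Baiap2l2 (chr15:79258195-79285537, minus strand), which encodes a protein that bends membrane for actin-rich protrusions, was at 0.171, 0.115 and 0.015 FPKM in WT and 17.8 and 17.1 FPKM in 5xFAD, a log2 difference of 4.07 ± 0.11 (adjusted p = 4.9e-10). Mamdc2 (chr19:23302609-23448442, minus strand), a secreted MAM domain protein, was at 0.649, 0.491 and 0.963 FPKM in WT and 25.4 and 26.96 FPKM in 5xFAD, a log2 difference of 4.01 ± 0.14 (adjusted p = 4.46e-09). Both genes were under 1 FPKM in every WT library and above 15 FPKM in both 5xFAD libraries. Cox6a2 (chr7:128205435-128206387, minus strand), the form of a cytochrome c oxidase subunit known from heart and skeletal muscle, overlaps Itgad on the opposite strand and was at 0.56, 0.648 and 0.35 FPKM in WT and 17.3 and 15.3 FPKM in 5xFAD, a log2 difference of 3.51 ± 0.30 (adjusted p = 1.11e-05). Pianp (chr6:124996694-125003096, plus strand), a ligand of the paired receptor PILRalpha, was at 0.349, 0.302 and 0.758 FPKM in WT and 9.95 and 12.3 FPKM in 5xFAD, a log2 difference of 3.05 ± 0.18 (adjusted p = 3.51e-07). Hpse (chr5:100679484-100719716, minus strand), heparanase, which cuts heparan sulfate chains, was at 0.385, 0.537 and 0.372 FPKM in WT and 10.6 and 10.2 FPKM in 5xFAD, a log2 difference of 2.998 ± 0.21 (adjusted p = 1.9e-06). Heparanase works both in the extracellular matrix and in lysosomes.

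The other genes of these 12 included 3 that sense or sit at the surface. Pdcd1 (chr1:94038305-94052553, minus strand), the inhibitory receptor PD-1 best known from T cells, was at 0.867, 0.978 and 0.719 FPKM in WT and 12.3 and 13.8 FPKM in 5xFAD, a log2 difference of 2.92 ± 0.21 (adjusted p = 2.65e-06), while T and NK cell markers summed to 0.1, 0.201 and 0.259 in WT and 0.701 and 0.622 in 5xFAD (FPKM). Olfr111 (chr17:37508030-37532449, plus strand), of the olfactory receptor family, was at 3.47, 3.88 and 2.83 FPKM in WT and 27.5 and 27.9 FPKM in 5xFAD, a log2 difference of 2.71 ± 0.15 (adjusted p = 2.18e-07). Hcar2 (chr5:123863570-123865499, minus strand), the receptor for beta-hydroxybutyrate and niacin, was at 1.73, 2.62 and 1.57 FPKM in WT and 16.1 and 19.5 FPKM in 5xFAD, a log2 difference of 2.67 ± 0.22 (adjusted p = 8.96e-06). Ctse (chr1:131638306-131675505, plus strand), the aspartic protease cathepsin E, was at 0.16, 0.298 and 0.131 FPKM in WT and 6.85 and 7.06 FPKM in 5xFAD, a log2 difference of 2.73 ± 0.16 (adjusted p = 3.61e-07). Ptchd1 (chrX:155573455-155623814, minus strand), a membrane protein related to the Patched receptors, rose by 2.81 ± 0.13 (adjusted p = 5.88e-08), and Myo1e (chr9:70207350-70399766, plus strand), an unconventional myosin, by 2.62 ± 0.19 (adjusted p = 2.21e-06). Gm49339 also met the rule for named genes, at 2.56, 2.31 and 1.504 FPKM in WT and 23.3 and 25.04 FPKM in 5xFAD, a log2 difference of 3.03 ± 0.20 (adjusted p = 8.76e-07), but it overlaps the listed marker Lilrb4a on the same strand, so its reads cannot be told apart from those of Lilrb4a. The rule that chose these 12 genes required that the groups did not overlap. Their calls held with any 1 of the 5 libraries left out.

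**Figure D3:**
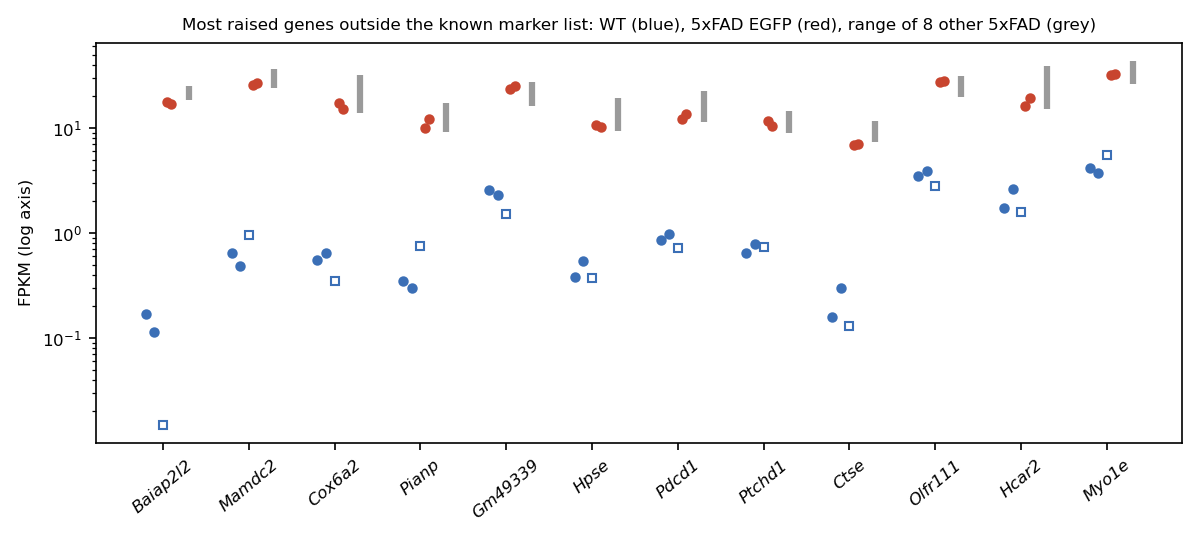
FPKM (log axis) of the 12 most raised genes outside the disease-associated list in WT (blue, WT replicate 3 as an open square) and 5xFAD EGFP (red) libraries, with grey bars for the range over the 8 other 5xFAD libraries. The rule that chose the genes required that red and blue points do not overlap, and WT replicate 3 lies with the other WT libraries or below them in most.

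Genes of the cytosolic ribosome, which translates messenger RNA, rose with the highest share of any list beyond the established markers. Of the 79 ribosomal protein genes, all 79 had positive differences, 63 rose (79.7%, against 7.65% of all tested genes) and none fell, with a median log2 difference of 0.74 against -0.03 over all genes. Their FPKM summed to 2617, 2538 and 2680 in WT and 5120 and 4281 in 5xFAD. Both 5xFAD libraries were higher than all 3 WT libraries, and the median member of WT replicate 3 lay 0.004 below the WT mean on the log2 scale. Rpl19 of the large subunit was at 15.9, 17.02 and 18.3 FPKM in WT and 39.998 and 40.6 FPKM in 5xFAD, a log2 difference of 1.19 ± 0.18 (adjusted p = 0.000919). Rps21 of the small subunit was at 44.99, 41.7 and 36.3 FPKM in WT and 88.8 and 94.3 FPKM in 5xFAD, a log2 difference of 1.14 ± 0.16 (adjusted p = 0.000572). Rpl21 was at 11.1, 9.58 and 8.68 FPKM in WT and 24.9 and 35.5 FPKM in 5xFAD, a log2 difference of 1.52 ± 0.21 (adjusted p = 0.000593), with the 5xFAD libraries less alike than in the other 2 genes. The smallest difference was 0.20 in Rpl27 (adjusted p = 0.302). Ribosomal protein genes are short, with a median exon length of 1770 bases against 4480.5 over tested genes, and raised genes were shorter than lowered ones (medians 3682 and 4795, and 3862.5 for raised genes without the ribosomal list). The part of gene length in these differences was not tested. Many ribosomal protein genes have near-identical processed pseudogenes, and how the authors' counting divided such reads is not given in the sources used here.

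Both subunits of the ribosome took part. From the small subunit Rps16 differed by 0.99 and Rpsa by 0.91, and from the large subunit Rpl22 differed by 1.02, Rpl32 by 1.02 and Rplp0 by 0.89. The fusion gene Fau, which encodes a ubiquitin-like protein joined to a ribosomal protein, rose by 0.86. The median was 0.76 without WT replicate 3 and 0.58 to 0.77 under the other scalings, and 62 still rose when all libraries were set to the same FPKM sum. With the 2 groups fitted alone 24 rose. Of the 79, 63 rose and none fell (63 and 0 without WT replicate 3, 20 and 0 without 5xFAD replicate 1). Rpsa, Rplp0 and Fau lost the call without 5xFAD replicate 1 (adjusted p = 0.0823 to 0.231), and Fau did so without 5xFAD replicate 2 or WT replicate 1 (adjusted p = 0.051 to 0.0535).

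**Figure D4:**
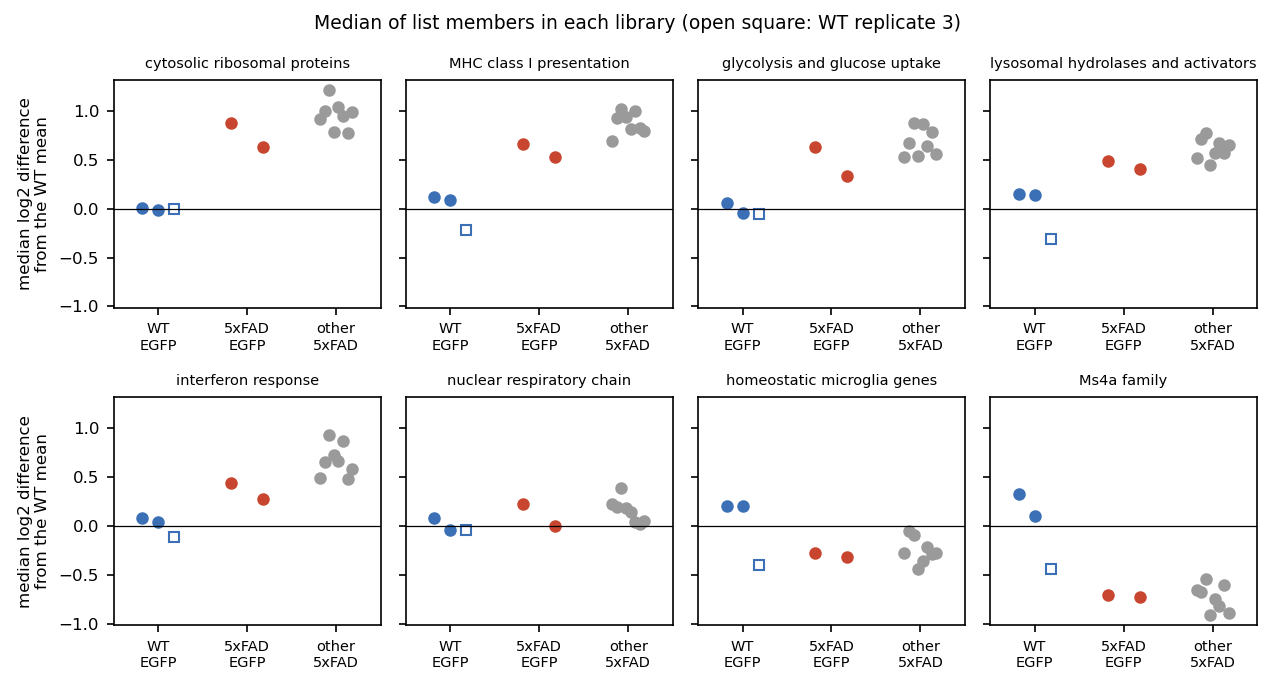
Median over the members of 8 gene lists of each library's log2(FPKM + 1) minus the mean of the 3 WT libraries, for WT EGFP (blue, WT replicate 3 as an open square), 5xFAD EGFP (red) and other 5xFAD libraries (grey). The WT libraries coincide for ribosomal protein genes, whereas WT replicate 3 lies below the other WT libraries for MHC class I, lysosomal, homeostatic and Ms4a genes.

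Of 40 tested genes of the proteasome, which breaks proteins down, 2 rose and none fell (1 and 0 without WT replicate 3, 0 and 0 without 5xFAD replicate 1 or 5xFAD replicate 2 or WT replicate 1, 1 and 6 at the same FPKM sum), with a median of 0.05. The raised share of 5.0% was near the 7.65% of all tested genes. The 2 were Psmb8, an immunoproteasome subunit, at 7.27, 7.74 and 4.69 FPKM in WT and 11.03 and 9.697 FPKM in 5xFAD (adjusted p = 0.0464), and Psmb6, a constitutive catalytic subunit, at 9.87, 11.1 and 9.94 FPKM in WT and 16.4 and 15.2 FPKM in 5xFAD (adjusted p = 0.0192). Of 23 tested genes of the unfolded protein and ATF4 responses 2 rose (8.7%) and 1 fell (4.35%, 2 and 0 without WT replicate 3 or WT replicate 1, 1 and 0 without 5xFAD replicate 1 or 5xFAD replicate 2). Psat1, an enzyme of serine synthesis under ATF4 control, was at 5.66, 5.34 and 12.3 FPKM in WT and 21.7 and 19.5 FPKM in 5xFAD, a log2 difference of 1.39 ± 0.24 (adjusted p = 0.0025). WT replicate 3 was the highest of its WT libraries, and without it the difference was 1.73. Sdf2l1, of the endoplasmic reticulum quality control machinery, was at 13.5, 16.8 and 8.298 FPKM in WT and 32.8 and 28.98 FPKM in 5xFAD, a log2 difference of 1.25 ± 0.30 (adjusted p = 0.0149). The amino acid transporter Slc7a5 was lower, at 17.7, 13.5 and 22.2 FPKM in WT and 9.44 and 8.405 FPKM in 5xFAD, a log2 difference of -0.90 ± 0.24 (adjusted p = 0.0248). Its WT libraries ran in the order of the endothelial sums, lowest in replicate 2 and highest in replicate 3, and the part of vascular RNA was not tested. Sdf2l1, Slc7a5, Psmb8 and Psmb6 lost the call without 5xFAD replicate 1 or 5xFAD replicate 2 (adjusted p = 0.0822 to 0.247), and Slc7a5, Psmb8 and Psmb6 did so without WT replicate 1 (adjusted p = 0.0579 to 0.0644). Slc7a5 and Psmb8 lost the call without WT replicate 3 (adjusted p = 0.051 to 0.0786).

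Digestive enzymes of the lysosome beyond the cathepsins of the established marker list had a raised share above that of all tested genes. Lysosomal hydrolases cut sugars, lipids and proteins in an acid lumen that the vacuolar proton pump maintains. Of 34 tested hydrolases and their activators 16 rose (47.1%), 1 fell and 17 did not pass, with a median log2 difference of 0.41. Gusb, beta-glucuronidase, was at 22.3, 22.8 and 14.3 FPKM in WT and 54.2 and 48.4 FPKM in 5xFAD, a log2 difference of 1.36 ± 0.20 (adjusted p = 0.000951). Gla, alpha-galactosidase A, was at 1.25, 1.34 and 1.07 FPKM in WT and 4.12 and 4.84 FPKM in 5xFAD, a log2 difference of 1.303 ± 0.12 (adjusted p = 1.87e-05). Dpp7, a dipeptidyl peptidase, was at 5.297, 4.91 and 3.06 FPKM in WT and 12.95 and 11.1 FPKM in 5xFAD, a log2 difference of 1.29 ± 0.16 (adjusted p = 0.000301). Hexa, the alpha subunit of beta-hexosaminidase, was at 121, 137 and 84.5 FPKM in WT and 289 and 253 FPKM in 5xFAD, a log2 difference of 1.26 ± 0.21 (adjusted p = 0.00198). Other raised members were Glb1 (1.19), Galns (1.01), Naglu (0.95), Scpep1 (0.89) and Lipa (0.73), the last of which encodes lysosomal acid lipase. Within heparan sulfate breakdown Naglu rose while Sgsh, the sulfamidase, fell, at 5.78, 6.76 and 4.51 FPKM in WT and 2.62 and 2.29 FPKM in 5xFAD, a log2 difference of -0.94 ± 0.15 (adjusted p = 0.00131), and Ids and Idua differed by -0.05 and 0.12 without passing. Scpep1 and Lipa lost the call without 5xFAD replicate 1 (adjusted p = 0.0528 to 0.0807).

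WT and 5xFAD libraries did not overlap in Gusb, Gla, Dpp7, Hexa or Sgsh, and WT replicate 3 was the lowest WT library in each. Over the list, 16 rose and 1 fell (14 and 2 without WT replicate 3, 8 and 1 without 5xFAD replicate 1, 15 and 2 with the marker covariate, 15 and 3 at the same FPKM sum), and the median was 0.27 without WT replicate 3.

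Of 17 tested subunits of the vacuolar proton pump 6 rose (35.3%) and none fell (5 and 0 without WT replicate 3, 2 and 0 without 5xFAD replicate 1, 6 and 1 at the same FPKM sum). Atp6v0d2, a form of the membrane-sector d subunit known from osteoclasts and macrophages, was at 0.016, 0.039 and 0 FPKM in WT and 3.61 and 3.98 FPKM in 5xFAD, a log2 difference of 2.23 ± 0.20 (adjusted p = 2.12e-05), while its broadly expressed counterpart Atp6v0d1 differed by 0.10 (adjusted p = 0.647). The catalytic-sector subunit Atp6v1a was at 8.27, 7.54 and 7.24 FPKM in WT and 12.99 and 11.6 FPKM in 5xFAD, a log2 difference of 0.61 ± 0.10 (adjusted p = 0.00176). Atp6v0c, Atp6v1c1, Atp6v1f and Atp6v1b2 rose by 0.61, 0.61, 0.60 and 0.51. Atp6v1c1, Atp6v0c, Atp6v1f and Atp6v1b2 lost the call without 5xFAD replicate 1 (adjusted p = 0.0738 to 0.217), and Atp6v0c and Atp6v1f did so without 5xFAD replicate 2 (adjusted p = 0.0782 to 0.112). Atp6v1f lost the call without WT replicate 3 (adjusted p = 0.0536).

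Of 17 other cathepsins and lysosomal membrane proteins 4 rose (23.5%) and none fell (3 and 3 without WT replicate 3, 1 and 0 without 5xFAD replicate 1 or 5xFAD replicate 2, 4 and 3 with the marker covariate, 3 and 4 at the same FPKM sum). Slc15a3, a lysosomal peptide and histidine transporter, was at 13.8, 17.2 and 10.95 FPKM in WT and 33.3 and 34.98 FPKM in 5xFAD, a log2 difference of 1.25 ± 0.20 (adjusted p = 0.00137). Lamp1, the major lysosomal membrane glycoprotein, was at 141, 137 and 105.3 FPKM in WT and 202 and 205 FPKM in 5xFAD, a log2 difference of 0.68 ± 0.16 (adjusted p = 0.0142). Grn, progranulin, rose by 0.76 ± 0.21 (adjusted p = 0.0334) and Lamp2 by 0.53 ± 0.16 (adjusted p = 0.0409). Ctss, the antigen-processing protease cathepsin S, differed by 0.58 (adjusted p = 0.188), and Ctsc by 0.19. The raised cathepsin gene Ctse, given above, was not on this list. The median of this list was 0.14 with all libraries and -0.02 without WT replicate 3. Grn, Lamp1 and Lamp2 lost the call without 5xFAD replicate 1 or 5xFAD replicate 2 (adjusted p = 0.085 to 0.203), and Lamp2 did so without WT replicate 3 (adjusted p = 0.0636).

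Autophagy genes, which deliver the cell's own contents to the lysosome, had a median of -0.01 and of 29 tested 5 rose (17.2%) and none fell (4 and 0 without WT replicate 3, 2 and 0 without 5xFAD replicate 1 or 5xFAD replicate 2, 4 and 6 at the same FPKM sum). Optn, the cargo receptor optineurin, was at 1.24, 1.34 and 1.96 FPKM in WT and 3.397 and 3.72 FPKM in 5xFAD, a log2 difference of 0.87 ± 0.14 (adjusted p = 0.00131). Sqstm1, the cargo receptor p62, was at 28.1, 28.01 and 26.6 FPKM in WT and 39.8 and 37.6 FPKM in 5xFAD, a log2 difference of 0.47 ± 0.12 (adjusted p = 0.0182). Tecpr1, which acts in autophagosome-lysosome fusion and in the repair of damaged lysosomes, rose by 0.60, the conjugated protein Gabarap by 0.51 and the E1-like enzyme Atg7 by 0.39. Core initiation genes Ulk1, Becn1 and Atg13 differed by -0.01, 0.17 and -0.06 and did not pass. Tfeb and Tfe3, transcription factors of lysosomal genes, differed by -0.08 and -0.14 and did not pass, while the related Mitf rose by 0.55 ± 0.12 (adjusted p = 0.0103). Tecpr1, Mitf, Gabarap and Sqstm1 lost the call without 5xFAD replicate 1 (adjusted p = 0.0606 to 0.344), and Mitf, Gabarap, Sqstm1 and Atg7 did so without 5xFAD replicate 2 (adjusted p = 0.0581 to 0.143). Gabarap lost the call without WT replicate 2 or WT replicate 3 (adjusted p = 0.0543 to 0.0778).

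Promoter sequence was read from the RefSeq promoter table of build GRCm38.p6, in which 8567 of the 10817 tested genes had an entry, over the 250 bases upstream of each gene start and on both strands. The 8-base sequence GTCACGTG, the core of the element that TFEB family factors are known to bind, was present in 5 of 27 lysosomal hydrolase promoters (18.5%) and 3 of 14 promoters of the other lysosomal proteins (21.4%), against 3.55% of all tested genes, 4.67% of raised genes and 1.86% of lowered genes. It was present in 3 of 14 raised hydrolases, in the single lowered one and in 1 of 12 that did not pass. It overlaps the general E-box CACGTG, found in 8.68% of all promoters. The windows below show 3 raised hydrolases, a raised membrane protein and the lowered Sgsh, to let the shared core and the differing flanks be compared. They are written 5′ to 3′ on the gene's strand, with the match in capitals.
Gla (chrX:134601174-134601221, minus strand): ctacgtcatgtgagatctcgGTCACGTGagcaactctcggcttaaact
Glb1 (chr9:114401008-114401055, plus strand): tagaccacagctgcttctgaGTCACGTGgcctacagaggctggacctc
Naglu (chr11:101069999-101070046, plus strand): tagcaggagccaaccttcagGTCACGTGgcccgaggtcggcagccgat
Lamp1 (chr8:13159113-13159160, plus strand): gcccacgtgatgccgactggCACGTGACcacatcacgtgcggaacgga
Sgsh (chr11:119355512-119355559, minus strand): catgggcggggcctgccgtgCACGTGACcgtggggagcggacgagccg
In Lamp1 and Sgsh the capitals are the reverse complement of the same 8 bases.

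Among energy genes, those of glycolysis, which breaks down glucose in the cytosol, had a raised share above that of all tested genes, while the share of the mitochondrial respiratory chain was near it (7.65% of all tested genes). Of 24 tested genes of glycolysis and glucose uptake 12 rose (50%) and none fell (11 and 2 without WT replicate 3, 6 and 0 without 5xFAD replicate 1, 10 and 1 without WT replicate 2, 13 and 2 with the marker covariate, 12 and 4 at the same FPKM sum), with a median of 0.47. Pkm, pyruvate kinase, was at 36.3, 34.8 and 36.2 FPKM in WT and 78.9 and 67.05 FPKM in 5xFAD, a log2 difference of 1.004 ± 0.15 (adjusted p = 0.000972). Tpi1, triosephosphate isomerase, was at 17.2, 15.97 and 19.3 FPKM in WT and 40.9 and 31.5 FPKM in 5xFAD, a log2 difference of 0.999 ± 0.20 (adjusted p = 0.00556). Slc16a3, which exports lactate, was at 3.71, 4.504 and 2.76 FPKM in WT and 9.68 and 7.93 FPKM in 5xFAD, a log2 difference of 1.08 ± 0.16 (adjusted p = 0.00103). Slc2a6, a hexose transporter of intracellular membranes, was at 0.376, 0.503 and 0.364 FPKM in WT and 2.99 and 3.26 FPKM in 5xFAD, a log2 difference of 1.54 ± 0.15 (adjusted p = 2.8e-05). Other raised genes of the pathway were Gpi1 (0.78), Pfkl (0.54), Aldoa (0.82), Gapdh (0.72), Pgk1 (0.76), Pgam1 (0.63) and Ldha (0.81), and the regulator Pfkfb3 (0.82). Tpi1, Aldoa, Ldha, Pgk1, Pgam1 and Pfkl lost the call without 5xFAD replicate 1 (adjusted p = 0.0645 to 0.249), and Pfkfb3 and Pfkl did so without 5xFAD replicate 2 (adjusted p = 0.0519 to 0.0916). Pfkl lost the call without WT replicate 1 or WT replicate 3 (adjusted p = 0.0581 to 0.0634), and Pgam1 and Pfkl did so without WT replicate 2 (adjusted p = 0.0577 to 0.0579).

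Not every member moved up. Slc2a1, the glucose transporter of the blood-brain barrier, was at 82.4, 43.6 and 93.6 FPKM in WT and 38.6 and 27.1 FPKM in 5xFAD (log2 difference -1.08, adjusted p = 0.0515), and Slc2a5, the fructose transporter of resting microglia, at 61.3, 62.4 and 39.8 FPKM in WT and 37.9 and 30.6 FPKM in 5xFAD (log2 difference -0.63, adjusted p = 0.115). The hexokinases Hk1, Hk2 and Hk3 differed by -0.22, 0.15 and 0.02, and none passed. Hif1a, a transcription factor known to drive glycolytic genes and one of the established markers, was at 12.3, 11.9 and 9.201 FPKM in WT and 49.96 and 46.6 FPKM in 5xFAD, a log2 difference of 2.03 ± 0.16 (adjusted p = 5.76e-06). Endothelial markers were highest in WT replicates 1 and 3, where Slc2a1 was also highest, and their part in its difference was not tested. The median of the list was 0.44 without WT replicate 3.

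Among 76 tested nuclear genes of the respiratory chain 6 rose and none fell (8 and 0 without WT replicate 3, 1 and 0 without 5xFAD replicate 1, 2 and 0 without 5xFAD replicate 2, 3 and 0 without WT replicate 2, 11 and 0 with the marker covariate, 3 and 6 at the same FPKM sum), and the raised share of 7.89% was close to the 7.65% of all genes, with a median of 0.11. Ndufa1, a complex I subunit, was at 7.48, 6.11 and 3.22 FPKM in WT and 12.3 and 18.6 FPKM in 5xFAD, a log2 difference of 1.35 ± 0.27 (adjusted p = 0.0056), with WT replicate 3 the lowest. Cox7a2l, which links complexes III and IV, was at 27.97, 25.1 and 29.01 FPKM in WT and 50.9 and 41.6 FPKM in 5xFAD, a log2 difference of 0.73 ± 0.13 (adjusted p = 0.00377). Uqcrh and Cox5b rose by 0.61 and 0.41. Cox6a1, the widely expressed counterpart of the raised Cox6a2, differed by 0.43 (adjusted p = 0.212). Cox6a2 itself was not on the list counted here. None of the 13 mitochondrially encoded genes passed in the main limma fit, and 2 rose with the marker covariate. The median of these genes was 0.37, and without WT replicate 3 it was 0.61, with 1 gene raised. Their summed FPKM varied among the WT libraries themselves, at 15190, 10262 and 20684 in WT and 19589 and 18740 in 5xFAD. Setting the libraries to the same FPKM sum put the median of the nuclear list at -0.04. With the 2 groups fitted alone none of the 76 nuclear genes passed. Cox7a2l, Uqcrh and Cox5b lost the call without 5xFAD replicate 1 (adjusted p = 0.0587 to 0.16), and Ndufa1 and Cox5b did so without 5xFAD replicate 2 (adjusted p = 0.0964 to 0.135). Cox5b lost the call without WT replicate 2 (adjusted p = 0.0552).

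Of 22 tested genes of cholesterol synthesis and uptake 4 rose (18.2%) and none fell (6 and 0 without WT replicate 3, 2 and 0 without 5xFAD replicate 1 or 5xFAD replicate 2 or WT replicate 1, 12 and 0 with the marker covariate), with a median of 0.16. Dhcr7, the last enzyme of cholesterol synthesis, was at 2.05, 1.99 and 2.42 FPKM in WT and 3.94 and 3.79 FPKM in 5xFAD, a log2 difference of 0.63 ± 0.10 (adjusted p = 0.00121). Insig1, the sterol sensor that holds back the pathway, rose by 0.72 and Cyp51 by 0.58, while Sqle, squalene epoxidase, differed by 0.10 without passing. WT replicate 3, which held the most oligodendrocyte RNA, was the highest WT library in Dhcr7, Insig1 and Cyp51. The median without it was 0.30 and with the marker covariate 0.34. Insig1 and Cyp51 lost the call without 5xFAD replicate 1 or 5xFAD replicate 2 or WT replicate 1 (adjusted p = 0.0502 to 0.178), and Cyp51 did so without WT replicate 2 (adjusted p = 0.0729).

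Of 25 tested genes of lipid efflux, storage and fatty acid handling 3 rose and 2 fell (5 and 4 without WT replicate 3, 2 and 1 without 5xFAD replicate 1, 3 and 0 without 5xFAD replicate 2, 3 and 1 without WT replicate 1 or WT replicate 2, 6 and 4 with the marker covariate, 3 and 9 at the same FPKM sum), with a median of -0.06. The shares were 12.0% raised and 8.0% lowered, against 7.65% and 6.35% of all tested genes, and with every library set to the same FPKM sum 3 rose and 9 fell. Fabp3, a fatty acid binding protein, was at 1.13, 0.79 and 0.819 FPKM in WT and 7.84 and 8.1 FPKM in 5xFAD, a log2 difference of 2.23 ± 0.16 (adjusted p = 2.2e-06). Plin2, the coat protein of lipid droplets, was at 4.37, 3.66 and 3.28 FPKM in WT and 9.09 and 8.38 FPKM in 5xFAD, a log2 difference of 1.03 ± 0.11 (adjusted p = 8.6e-05). Soat1, which esterifies cholesterol for storage, was at 8.39, 8.16 and 6.7 FPKM in WT and 12.9 and 11.4 FPKM in 5xFAD, a log2 difference of 0.59 ± 0.11 (adjusted p = 0.004). The efflux pumps Abca1 and Abcg1 differed by -0.44 and 0.02 and did not pass. Pltp, the phospholipid transfer protein, was lower, at 53.03, 37.8 and 76.8 FPKM in WT and 19.8 and 14.1 FPKM in 5xFAD, a log2 difference of -1.62 ± 0.34 (adjusted p = 0.00738). It overlaps the raised Ctsa on the opposite strand, and its WT libraries ran in the same order as the vascular markers, highest in WT replicate 3 and lowest in WT replicate 2. Lpcat3, which remodels phospholipids, was at 18.5, 19.6 and 14.3 FPKM in WT and 12.2 and 11.9 FPKM in 5xFAD, a log2 difference of -0.49 ± 0.14 (adjusted p = 0.0313). Soat1 and Lpcat3 lost the call without 5xFAD replicate 1 (adjusted p = 0.0569 to 0.131), and Pltp and Lpcat3 did so without 5xFAD replicate 2 (adjusted p = 0.103 to 0.191). Lpcat3 lost the call without WT replicate 1 or WT replicate 2 (adjusted p = 0.0892 to 0.0912).

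None of 11 tested genes of eicosanoid synthesis passed in the main limma fit, while 3 fell with the marker covariate and 3 at the same FPKM sum. Alox5ap, which presents arachidonic acid to 5-lipoxygenase, was at 50.6, 47.8 and 29.6 FPKM in WT and 27.9 and 21.6 FPKM in 5xFAD (log2 difference -0.74, adjusted p = 0.0785). Ltc4s, leukotriene C4 synthase, was at 80.9, 81.6 and 48.6 FPKM in WT and 46.6 and 42.04 FPKM in 5xFAD (log2 difference -0.62, adjusted p = 0.106), and Ptgs1, cyclooxygenase 1, at 96.02, 106 and 66.03 FPKM in WT and 65.7 and 71.9 FPKM in 5xFAD (log2 difference -0.35, adjusted p = 0.249). In all 3 genes WT replicate 3 lay nearest to the 5xFAD values. Without WT replicate 3 these 3 genes fell, with differences of -0.98, -0.86 and -0.55 (adjusted p = 0.0125, 0.0098 and 0.0157).

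Antigen display by MHC class I, which presents peptides from inside the cell, rose mainly among its display molecules. Of 17 tested genes 10 rose (58.8%) and none fell (9 and 0 without WT replicate 3), with a median of 0.62. H2-D1, a classical heavy chain, was at 73.6, 72.2 and 58.2 FPKM in WT and 208 and 205 FPKM in 5xFAD, a log2 difference of 1.597 ± 0.15 (adjusted p = 3.3e-05). H2-K1, the other classical heavy chain, was at 46.5, 42.6 and 37.1 FPKM in WT and 106 and 96.1 FPKM in 5xFAD, a log2 difference of 1.25 ± 0.14 (adjusted p = 0.00014). H2-Q7 was at 1.62, 1.41 and 1.71 FPKM in WT and 5.38 and 6.03 FPKM in 5xFAD, a log2 difference of 1.38 ± 0.16 (adjusted p = 0.00013), and H2-Q6 rose by 1.52 ± 0.17 (adjusted p = 0.000111). These genes are close paralogs, so reads may be divided between them. Nlrc5, the transactivator of class I genes, rose by 1.103, H2-M3 by 1.08, H2-Q4 by 1.04 and the peptide transporter subunit Tap1 by 0.55, while Tap2 and Tapbp differed by 0.09 and 0.28 and did not pass. The median was 0.50 without WT replicate 3. With the 2 groups fitted alone 9 of the 17 rose. Tap1 lost the call without 5xFAD replicate 1 or 5xFAD replicate 2 (adjusted p = 0.0748 to 0.0807).

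MHC class II, which presents engulfed material, gave 10 tested genes, of which 4 rose (40%) and none fell (3 and 1 without WT replicate 3, 0 and 0 without 5xFAD replicate 1, 1 and 0 without 5xFAD replicate 2, 4 and 1 with the marker covariate, 3 and 1 at the same FPKM sum). H2-Aa was at 9.43, 9.74 and 7.34 FPKM in WT and 33.4 and 27.5 FPKM in 5xFAD, a log2 difference of 1.68 ± 0.37 (adjusted p = 0.0102). H2-Ab1, the beta chain of the same molecule, was at 12.5, 13.3 and 10.2 FPKM in WT and 38.1 and 32.6 FPKM in 5xFAD, a log2 difference of 1.49 ± 0.32 (adjusted p = 0.00896). H2-Oa and H2-Ob, which restrain peptide exchange, rose by 0.74 and 0.46. H2-DMa, H2-DMb1 and H2-DMb2, the exchange factor itself, differed by 0.31, 0.15 and -0.48, and none passed with all libraries. Ciita, the class II transactivator, was below the filter. Class II genes are also expressed by border macrophages, whose markers were lower in 5xFAD, and their part in these differences was not tested. All 4 of these genes lost the call without 5xFAD replicate 1 (adjusted p = 0.0799 to 0.247), and H2-Aa, H2-Ab1 and H2-Ob did so without 5xFAD replicate 2 (adjusted p = 0.0523 to 0.0924). H2-Ob lost the call without WT replicate 3 (adjusted p = 0.0547).

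Genes of the interferon response, the antiviral program that interferons switch on, rose unevenly. Of 42 tested genes 14 rose (33.3%) and 2 fell (4.76%, 14 and 2 without WT replicate 3, 6 and 1 without 5xFAD replicate 1, 10 and 0 without 5xFAD replicate 2). The raised share was 33.3%, 37 of the 42 differences were positive, and the median was 0.38. Ifi27l2a was at 3.66, 3.26 and 2.504 FPKM in WT and 23.1 and 15.3 FPKM in 5xFAD, a log2 difference of 2.27 ± 0.29 (adjusted p = 0.000271). Ifi204, a DNA sensor of the HIN-200 family, was at 1.77, 1.74 and 1.12 FPKM in WT and 6.403 and 5.29 FPKM in 5xFAD, a log2 difference of 1.43 ± 0.18 (adjusted p = 0.000258). Oas1a, which makes the oligoadenylates that activate RNase L, was at 1.76, 1.49 and 1.44 FPKM in WT and 5.61 and 4.701 FPKM in 5xFAD, a log2 difference of 1.26 ± 0.16 (adjusted p = 0.000248). Ifi207, a relative of Ifi204, rose by 1.14 ± 0.22 (adjusted p = 0.00436). The transcription factor Stat2 rose by 0.48, the negative regulator Usp18 by 0.74 and the nucleic acid sensor Zbp1 by 0.99. Several of the best known targets did not pass, among them Isg15 (0.26), Ifit1 (0.17), Ifit3 (0.77), Irf7 (0.39) and Ifitm3 (0.04). Neither did Eif2ak2, which encodes PKR, at 5.18, 5.23 and 4.14 FPKM in WT and 6.49 and 6.59 FPKM in 5xFAD (log2 difference 0.37, adjusted p = 0.0577). Ifi207, Usp18 and Stat2 lost the call without 5xFAD replicate 1 (adjusted p = 0.0597 to 0.132), and Stat2 did so without 5xFAD replicate 2 (adjusted p = 0.1).

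Both lowered members were guanylate-binding proteins, an interferon-induced family of GTPases. Gbp7 fell, at 9.44, 7.98 and 5.93 FPKM in WT and 3.69 and 3.06 FPKM in 5xFAD, a log2 difference of -0.99 ± 0.20 (adjusted p = 0.0067). Gbp3 fell, at 4.53, 3.21 and 3.68 FPKM in WT and 1.98 and 2.15 FPKM in 5xFAD, a log2 difference of -0.64 ± 0.15 (adjusted p = 0.0136), and Gbp2 differed by -0.16 without passing. In Gbp7 and Gbp3 both 5xFAD libraries lay below every WT library. The median of the list was 0.33 without WT replicate 3. Gbp3 lost the call without 5xFAD replicate 1 (adjusted p = 0.101), and Gbp7 and Gbp3 did so without 5xFAD replicate 2 (adjusted p = 0.0777 to 0.0868).

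The interferon-stimulated response element, searched as GAAANNGAA on both strands, was present in the 250 bases upstream of 17 of 33 interferon genes with a RefSeq promoter (51.5%), against 6.17% of all tested genes, 8.86% of raised genes and 6.89% of lowered genes. It was held by 5 of 9 raised members, both lowered members and 10 of 22 that did not pass, and by 3 of 13 MHC class I genes. The sequences below set 4 raised genes beside the 2 lowered ones and Isg15, which did not pass, all with the same element, written 5′ to 3′ on the gene's strand with 1 match in capitals. Oas1a, Bst2 and Gbp3 held 2 matches in the 250 bases and Isg15 held 3, and the further matches are not marked.
Oas1a (chr5:120907526-120907559, minus strand): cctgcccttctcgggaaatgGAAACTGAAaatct
Ifi207 (chr1:173741822-173741870, minus strand): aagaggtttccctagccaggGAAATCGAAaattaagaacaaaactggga
Bst2 (chr8:71537568-71537616, minus strand): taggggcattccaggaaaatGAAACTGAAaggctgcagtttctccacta
Stat2 (chr10:128270257-128270305, plus strand): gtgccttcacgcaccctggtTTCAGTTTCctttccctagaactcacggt
Gbp7 (chr3:142530264-142530312, plus strand): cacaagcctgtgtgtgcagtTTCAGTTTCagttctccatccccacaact
Gbp3 (chr3:142559986-142560034, plus strand): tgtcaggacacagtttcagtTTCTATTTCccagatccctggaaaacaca
Isg15 (chr4:156200856-156200904, minus strand): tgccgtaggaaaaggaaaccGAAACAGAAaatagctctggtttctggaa
In Stat2, Gbp7 and Gbp3 the capitals are the reverse complement of the pattern. Other patterns searched in the same windows were the M-box core TCACGTGA, the E-box CACGTG, the AP-1 site TGANTCA, the cyclic AMP element TGACGTCA, the PU.1 site GAGGAAGT, the CCAAT box of the same letters, the hypoxia core ACGTG and the sterol element TCACNCCAC, and their shares among raised genes differed from those among all genes by -0.13 to 1.63 percentage points. Among lowered genes the hypoxia core was present in 16.6% against 22.2% of all genes, the cyclic AMP element in 0.559% against 2.77% and the CCAAT box in 38.9% against 36.6%.

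Signalling proteins changed in small numbers within each family, with secreted cytokines and their receptors on both sides. Of 16 tested cytokines 5 rose (31.2%) and 2 fell (12.5%, 5 and 2 without WT replicate 3, 3 and 1 without 5xFAD replicate 1, 4 and 0 without 5xFAD replicate 2, 5 and 1 without WT replicate 1, 6 and 4 at the same FPKM sum). Tnfsf8, the CD30 ligand, was at 0.403, 0.529 and 0.474 FPKM in WT and 4.81 and 4.36 FPKM in 5xFAD, a log2 difference of 1.93 ± 0.10 (adjusted p = 1.99e-07). Mif, macrophage migration inhibitory factor, was at 13.7, 12.4 and 15.96 FPKM in WT and 42.2 and 40.6 FPKM in 5xFAD, a log2 difference of 1.502 ± 0.13 (adjusted p = 9.98e-06). Osm, oncostatin M, was at 4.49, 4.79 and 2.42 FPKM in WT and 10.5 and 12.1 FPKM in 5xFAD, a log2 difference of 1.36 ± 0.22 (adjusted p = 0.00172). Il1b was at 3.77, 5.49 and 2.47 FPKM in WT and 14.3 and 10.1 FPKM in 5xFAD, a log2 difference of 1.45 ± 0.27 (adjusted p = 0.00399). WT replicate 3 was the lowest in both. Tnf rose by 1.31. Tgfb2 fell, at 4.21, 2.43 and 3.76 FPKM in WT and 1.32 and 1.05 FPKM in 5xFAD, a log2 difference of -1.01 ± 0.22 (adjusted p = 0.00951). Its lowest WT library was replicate 2, as in the vascular marker sums, and the part of vascular RNA was not tested. Tnfsf10 fell by a small amount, at 1.65, 1.61 and 1.599 FPKM in WT and 1.16 and 1.08 FPKM in 5xFAD, a log2 difference of -0.31 ± 0.09 (adjusted p = 0.0496). Tgfb1, the form on which resting microglia depend, differed by 0.10, Il1a by 0.34 and Il18 by -0.27, and none passed. Il6, Il10 and Il12b were below the filter. Il1b, Tnf and Tnfsf10 lost the call without 5xFAD replicate 1 (adjusted p = 0.0529 to 0.155), and Tnf, Tgfb2 and Tnfsf10 did so without 5xFAD replicate 2 (adjusted p = 0.104 to 0.272). Tnfsf10 lost the call without WT replicate 1 or WT replicate 2 or WT replicate 3 (adjusted p = 0.0601 to 0.106).

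Of 28 tested cytokine receptors 4 rose and 2 fell (4 and 6 without WT replicate 3, 3 and 1 without 5xFAD replicate 1, 3 and 0 without 5xFAD replicate 2, 4 and 0 without WT replicate 1, 5 and 1 without WT replicate 2, 6 and 4 with the marker covariate, 4 and 6 at the same FPKM sum). The shares were 14.3% raised and 7.14% lowered, against 7.65% and 6.35% of all tested genes, so the lowered share was near the background. Il3ra, the interleukin 3 receptor alpha chain, was at 1.16, 1.33 and 0.781 FPKM in WT and 5.298 and 6.82 FPKM in 5xFAD, a log2 difference of 1.76 ± 0.13 (adjusted p = 2.34e-06). Crlf2, a subunit of the receptor for thymic stromal lymphopoietin, was at 18.1, 23.1 and 14.2 FPKM in WT and 63.1 and 58.1 FPKM in 5xFAD, a log2 difference of 1.69 ± 0.26 (adjusted p = 0.0011). Csf2ra, the alpha chain for GM-CSF, was at 13.4, 16.5 and 10.8 FPKM in WT and 34.5 and 34.1 FPKM in 5xFAD, a log2 difference of 1.29 ± 0.15 (adjusted p = 0.000141). The beta chains shared by the interleukin 3 and GM-CSF receptors, Csf2rb and Csf2rb2, differed by 0.04 and -0.17, so the alpha chains rose without a called difference in their partners. Tgfbr2 rose by 0.66 ± 0.17 (adjusted p = 0.0231), while Il6ra and Lifr fell by 0.64 and 0.54 on the log2 scale. Tgfbr2 and Il6ra lost the call without 5xFAD replicate 1 (adjusted p = 0.11 to 0.151), and Tgfbr2, Il6ra and Lifr did so without 5xFAD replicate 2 (adjusted p = 0.114 to 0.226). Il6ra and Lifr lost the call without WT replicate 1 (adjusted p = 0.0593 to 0.107), and Il6ra did so without WT replicate 2 (adjusted p = 0.0858).

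Of 12 tested chemokines outside the established markers 2 rose (16.7%) and 2 fell (16.7%, 2 and 2 without WT replicate 3, 2 and 1 without 5xFAD replicate 1 or WT replicate 1, 1 and 0 without 5xFAD replicate 2). Cxcl16, a membrane-bound chemokine that also binds oxidised lipoprotein, was at 7.63, 7.61 and 4.61 FPKM in WT and 16.8 and 18.4 FPKM in 5xFAD, a log2 difference of 1.32 ± 0.19 (adjusted p = 0.000703). Cxcl10, an interferon-induced chemokine, was at 1.05, 1.09 and 0.827 FPKM in WT and 2.78 and 3.195 FPKM in 5xFAD, a log2 difference of 1.003 ± 0.22 (adjusted p = 0.00896). Cxcl12, made by vascular and stromal cells, was at 7.81, 3.86 and 11.9 FPKM in WT and 2.54 and 1.49 FPKM in 5xFAD, a log2 difference of -1.47 ± 0.36 (adjusted p = 0.0172), in the order of the vascular markers, and Ccl25 fell by 0.30. Of 8 tested chemoattractant receptors 3 rose (37.5%) and 1 fell (12.5%, 3 and 2 without WT replicate 3, 1 and 0 without 5xFAD replicate 1, 2 and 0 without 5xFAD replicate 2, 3 and 0 without WT replicate 1 or WT replicate 2, 3 and 2 with the marker covariate, 3 and 2 at the same FPKM sum). Ccrl2, which binds chemerin without signalling, was at 8.33, 6.18 and 4.69 FPKM in WT and 19.6 and 18.1 FPKM in 5xFAD, a log2 difference of 1.45 ± 0.22 (adjusted p = 0.000988). Cxcr4, the CXCL12 receptor, was at 2.72, 1.48 and 3.27 FPKM in WT and 11.4 and 5.72 FPKM in 5xFAD, a log2 difference of 1.43 ± 0.28 (adjusted p = 0.00582), the 5xFAD libraries differing from each other. C3ar1, the receptor for complement C3a, rose by 0.80. Cxcr4, C3ar1 and Ccl25 lost the call without 5xFAD replicate 1 (adjusted p = 0.0799 to 0.174), and Cxcl12, Cxcl10, C3ar1 and Ccl25 did so without 5xFAD replicate 2 (adjusted p = 0.0966 to 0.183). Cxcl12 lost the call without WT replicate 1 (adjusted p = 0.0536).

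Of the Toll-like receptors and their partners, those that rose act at the cell surface. Tlr2, the receptor for bacterial lipopeptides, was at 16.3, 16.8 and 10.9 FPKM in WT and 41.9 and 42.03 FPKM in 5xFAD, a log2 difference of 1.48 ± 0.20 (adjusted p = 0.000455). Its co-receptor Cd14 was at 61.6, 60.6 and 37.1 FPKM in WT and 113 and 102 FPKM in 5xFAD, a log2 difference of 1.04 ± 0.25 (adjusted p = 0.0149), and Cd180 and its partner Ly86 rose by 1.01 and 0.77. Tlr4 differed by -0.24 and its partner Ly96 by -0.26, and the nucleic acid sensors Tlr3, Tlr7 and Tlr9 by -0.32, 0.04 and -0.27, and none of these 5 passed with all libraries. Tlr5, the flagellin receptor, fell by 0.51. Of the 24 genes 4 rose (16.7%) and 1 fell (4.17%, 3 and 5 without WT replicate 3, 1 and 0 without 5xFAD replicate 1 or 5xFAD replicate 2, 3 and 0 without WT replicate 1, 4 and 0 without WT replicate 2, 4 and 4 with the marker covariate, 4 and 5 at the same FPKM sum). Downstream, of 18 NF-kappaB genes and feedback regulators 4 rose (22.2%) and none fell (2 and 0 without WT replicate 3 or 5xFAD replicate 1 or 5xFAD replicate 2, 2 and 0 with the marker covariate, 2 and 1 at the same FPKM sum), and the raised ones are known as brakes or modulators of the response. Nfkbiz was at 15.9, 15.4 and 10.6 FPKM in WT and 31.97 and 37.4 FPKM in 5xFAD, a log2 difference of 1.27 ± 0.19 (adjusted p = 0.000972). Tnfaip3, the deubiquitinase A20, was at 15.4, 14.3 and 8.85 FPKM in WT and 28.02 and 28.97 FPKM in 5xFAD, a log2 difference of 1.12 ± 0.20 (adjusted p = 0.00305). The RNA-decay factors Zfp36 and Zc3h12a rose by 0.85 and 0.52, while the subunits Rela, Nfkb1 and Rel differed by 0.05, 0.06 and -0.01 and did not pass. With the 2 groups fitted alone 1 of the 18 NF-kappaB genes and regulators rose. Cd14, Cd180, Zfp36, Ly86, Zc3h12a and Tlr5 lost the call without 5xFAD replicate 1 or 5xFAD replicate 2 (adjusted p = 0.0804 to 0.368), and Cd180, Zc3h12a and Tlr5 did so without WT replicate 1 (adjusted p = 0.0631 to 0.119). Zfp36 and Tlr5 lost the call without WT replicate 2 (adjusted p = 0.0778 to 0.13), and Cd180, Zfp36 and Zc3h12a did so without WT replicate 3 (adjusted p = 0.0515 to 0.0833).

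Of 23 immediate-early and stress genes, which are known to respond to cell isolation, 5 rose (21.7%) and none fell (3 and 0 without WT replicate 3, 2 and 0 without 5xFAD replicate 1 or 5xFAD replicate 2 or WT replicate 2, 8 and 0 without WT replicate 1, 5 and 1 at the same FPKM sum). Egr2 was at 2.09, 1.62 and 1.18 FPKM in WT and 7.61 and 8.59 FPKM in 5xFAD, a log2 difference of 1.803 ± 0.17 (adjusted p = 2.82e-05). Atf3, a stress-induced repressor, was at 40.01, 32.99 and 25.5 FPKM in WT and 84.6 and 114 FPKM in 5xFAD, a log2 difference of 1.58 ± 0.21 (adjusted p = 0.000377). Dusp1, Egr1 and Ier2 rose by 0.999, 0.97 and 0.77, but Fos, Jun and Junb differed by 0.50, 0.49 and 0.38 and the heat shock genes Hspa1a and Hspa1b by 0.34 and 0.26, and none of these 5 passed. Dusp1, Egr1 and Ier2 lost the call without 5xFAD replicate 1 or 5xFAD replicate 2 or WT replicate 2 (adjusted p = 0.051 to 0.334), and Egr1 did so without WT replicate 1 (adjusted p = 0.0506). Egr1 and Ier2 lost the call without WT replicate 3 (adjusted p = 0.0677 to 0.0799).

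Of 39 tested transcription factors of macrophages 8 rose (20.5%) and 1 fell (2.56%, 8 and 4 without WT replicate 3, 4 and 0 without 5xFAD replicate 1, 3 and 0 without 5xFAD replicate 2, 8 and 0 without WT replicate 1, 8 and 5 with the marker covariate, 6 and 7 at the same FPKM sum). Maff, a small MAF protein, was at 1.36, 1.08 and 1.33 FPKM in WT and 6.37 and 6.87 FPKM in 5xFAD, a log2 difference of 1.76 ± 0.15 (adjusted p = 9.96e-06). Bhlhe40 was at 3.99, 2.03 and 5.33 FPKM in WT and 11.2 and 9.7 FPKM in 5xFAD, a log2 difference of 1.32 ± 0.22 (adjusted p = 0.00198). Its paralog Bhlhe41 was at 14.03, 17.1 and 13.01 FPKM in WT and 21.5 and 26.3 FPKM in 5xFAD, a log2 difference of 0.66 ± 0.14 (adjusted p = 0.00875). Both encode transcriptional repressors. Nfil3 was at 2.42, 1.37 and 1.16 FPKM in WT and 5.52 and 4.495 FPKM in 5xFAD, a log2 difference of 1.204 ± 0.19 (adjusted p = 0.00136). Id2, Irf8, Mitf and Ppard rose by 0.58, 0.56, 0.55 and 0.30. Maf, a large MAF factor of tissue macrophages, fell, at 40.7, 43.1 and 27.9 FPKM in WT and 22.8 and 23.1 FPKM in 5xFAD, a log2 difference of -0.65 ± 0.19 (adjusted p = 0.0416). The lineage factors Spi1, Mef2c and Sall1 differed by 0.00, 0.28 and -0.35, and none passed. Maf, Id2, Irf8, Mitf and Ppard lost the call without 5xFAD replicate 1 (adjusted p = 0.071 to 0.176), and Bhlhe41, Maf, Id2, Irf8, Mitf and Ppard did so without 5xFAD replicate 2 (adjusted p = 0.0814 to 0.196). Maf and Id2 lost the call without WT replicate 1 or WT replicate 2 (adjusted p = 0.0514 to 0.12).

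Of 37 tested genes of immune receptors with inhibitory or paired functions and their signalling 10 rose and 3 fell (10 and 7 without WT replicate 3, 10 and 7 with the marker covariate, 10 and 7 at the same FPKM sum). The shares were 27.0% raised and 8.11% lowered, the latter near the 6.35% of all tested genes. Besides Pdcd1, its ligand Cd274 (PD-L1) rose, at 2.198, 2.75 and 2.29 FPKM in WT and 9.44 and 8.75 FPKM in 5xFAD, a log2 difference of 1.57 ± 0.10 (adjusted p = 5.82e-07). Cd200r4, an activating member of the CD200 receptor family, was at 0.471, 0.349 and 0.233 FPKM in WT and 5.34 and 5.18 FPKM in 5xFAD, a log2 difference of 2.22 ± 0.13 (adjusted p = 3.77e-07), while Cd200r1, the inhibitory member, differed by 0.05 (adjusted p = 0.822). The Src family kinase Fgr was at 0.597, 0.749 and 0.426 FPKM in WT and 3.98 and 3.78 FPKM in 5xFAD, a log2 difference of 1.62 ± 0.18 (adjusted p = 0.00013), while the related Lyn differed by -0.24 and did not pass. Among sialic acid receptors Siglecf rose by 1.45 and Cd22 by 1.17, while Siglece fell, at 21.2, 21.5 and 14.5 FPKM in WT and 7.804 and 7.94 FPKM in 5xFAD, a log2 difference of -1.16 ± 0.21 (adjusted p = 0.00378). Clec4a2, an inhibitory C-type lectin, fell, at 6.46, 5.85 and 4.06 FPKM in WT and 2.19 and 2.24 FPKM in 5xFAD, a log2 difference of -0.99 ± 0.17 (adjusted p = 0.00291). The adaptor Dok3 also fell, at 12.01, 12.98 and 7.35 FPKM in WT and 4.24 and 3.76 FPKM in 5xFAD, a log2 difference of -1.203 ± 0.28 (adjusted p = 0.0135). Inpp5d, Plcg2, Syk and Cd33, signalling genes linked to Alzheimer's disease or to TREM2, differed by -0.24, -0.09, -0.27 and -0.39, and none passed with all libraries. Dok3 lost the call without 5xFAD replicate 1 or 5xFAD replicate 2 (adjusted p = 0.0656 to 0.119).

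Of 30 tested ion channel genes 6 rose (20%) and 3 fell (10%, 7 and 8 without WT replicate 3, 4 and 1 without 5xFAD replicate 1, 5 and 1 without 5xFAD replicate 2, 8 and 6 with the marker covariate, 5 and 11 at the same FPKM sum). Kcnj2, the inward rectifier potassium channel Kir2.1, was at 5.86, 6.29 and 5.15 FPKM in WT and 31.4 and 31.4 FPKM in 5xFAD, a log2 difference of 2.26 ± 0.13 (adjusted p = 2.82e-07). Kcna3, the voltage-gated potassium channel Kv1.3, was at 1.42, 1.32 and 1.32 FPKM in WT and 6.89 and 7.67 FPKM in 5xFAD, a log2 difference of 1.81 ± 0.11 (adjusted p = 5.44e-07). Cacna1a, the pore of the P/Q-type calcium channel best known from neurons, was at 1.599, 1.91 and 2.601 FPKM in WT and 11.8 and 12.8 FPKM in 5xFAD, a log2 difference of 2.15 ± 0.12 (adjusted p = 3.32e-07). Neuron markers were highest in WT replicate 3, which also held the highest WT value of Cacna1a, and without that library its difference was 2.27. Without that library 6 of the 7 tested neuron markers also rose, and their part in the Cacna1a difference was not tested. In all 3 channels the lowest 5xFAD library lay above the highest WT library by more than 4-fold. P2rx4, an ATP-gated channel, rose by 0.58 ± 0.11 (adjusted p = 0.00415), while P2rx7 differed by -0.30 and Hvcn1, the proton channel, by 0.60, and neither passed. P2rx4 lost the call without 5xFAD replicate 1 (adjusted p = 0.0505).

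The lowered channels included 2 known for mechanical sensing, Trpv4 and Piezo1. Trpv4 was at 7.79, 6.45 and 5.19 FPKM in WT and 2.99 and 3.43 FPKM in 5xFAD, a log2 difference of -0.82 ± 0.21 (adjusted p = 0.0228). Piezo1 was at 9.22, 8.44 and 7.38 FPKM in WT and 5.83 and 6.06 FPKM in 5xFAD, a log2 difference of -0.42 ± 0.10 (adjusted p = 0.0144). The lipid scramblase Ano6 was at 6.12, 5.401 and 5.32 FPKM in WT and 3.92 and 3.85 FPKM in 5xFAD, a log2 difference of -0.44 ± 0.08 (adjusted p = 0.00286). The potassium channel Kcnk12 was at 6.29, 5.37 and 4.38 FPKM in WT and 2.88 and 2.33 FPKM in 5xFAD (log2 difference -0.81, adjusted p = 0.0628). Trpv4 and Piezo1 lost the call without 5xFAD replicate 1 or 5xFAD replicate 2 (adjusted p = 0.0859 to 0.154), and Trpv4 did so without WT replicate 1 (adjusted p = 0.0803).

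Of 26 tested G protein-coupled receptors 2 rose and 4 fell (3 and 7 without WT replicate 3, 2 and 0 without 5xFAD replicate 2, 4 and 10 with the marker covariate, 2 and 8 at the same FPKM sum), with a median of -0.17 that was -0.36 without WT replicate 3. The raised share of 7.69% was near that of all tested genes (7.65%), and the lowered share was 15.4% against 6.35%. These shares hold for a chosen list of receptors. The raised receptors Hcar2, Olfr111, Cxcr4 and C3ar1, given in other paragraphs, were not on it. Gpr65, a proton-sensing receptor, was at 2.04, 2.403 and 1.15 FPKM in WT and 8.49 and 8.05 FPKM in 5xFAD, a log2 difference of 1.72 ± 0.19 (adjusted p = 9.1e-05). Ptger4, the prostaglandin E2 receptor EP4, was at 0.387, 0.391 and 0.224 FPKM in WT and 1.99 and 2.28 FPKM in 5xFAD, a log2 difference of 1.24 ± 0.12 (adjusted p = 4.41e-05). Adgrg1, the adhesion receptor GPR56 of yolk sac-derived microglia, fell, at 96.6, 91.98 and 64.2 FPKM in WT and 48.9 and 44.5 FPKM in 5xFAD, a log2 difference of -0.82 ± 0.18 (adjusted p = 0.00942). Gpr165 was at 7.03, 4.99 and 3.76 FPKM in WT and 1.96 and 1.38 FPKM in 5xFAD, a log2 difference of -1.21 ± 0.28 (adjusted p = 0.0131), Lpar6 fell by 0.55, and Adgre5, an adhesion receptor also found outside microglia, was at 7.72, 4.15 and 11.2 FPKM in WT and 2.69 and 1.92 FPKM in 5xFAD, a log2 difference of -1.32 ± 0.30 (adjusted p = 0.0117), also in the order of the endothelial sums. P2ry12 and P2ry13 differed by -0.50 and -0.31 and did not pass. Lpar6 lost the call without 5xFAD replicate 1 or WT replicate 1 or WT replicate 2 (adjusted p = 0.054 to 0.0693), and Adgre5, Gpr165, Adgrg1 and Lpar6 did so without 5xFAD replicate 2 (adjusted p = 0.104 to 0.237).

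Of 27 tested genes for matrix-acting and secreted proteins 12 rose (44.4%) and 4 fell (14.8%, 11 and 5 without WT replicate 3, 8 and 2 without 5xFAD replicate 1, 10 and 0 without 5xFAD replicate 2, 11 and 1 without WT replicate 1). Adamts1, a protease of proteoglycans, was at 16.5, 9.22 and 10.8 FPKM in WT and 53.1 and 74.6 FPKM in 5xFAD, a log2 difference of 2.32 ± 0.27 (adjusted p = 0.000136). Plau, urokinase, which activates plasminogen, was at 16.6, 18.7 and 12.1 FPKM in WT and 66.97 and 67.3 FPKM in 5xFAD, a log2 difference of 2.04 ± 0.22 (adjusted p = 9.48e-05), and its receptor Plaur and its inhibitor Serpine2 rose by 1.78 and 1.47. Lox, which cross-links collagen, was at 0.39, 0.329 and 0.44 FPKM in WT and 4.75 and 4.62 FPKM in 5xFAD, a log2 difference of 2.04 ± 0.10 (adjusted p = 1.47e-07). Dkk2, a secreted WNT antagonist, was at 0.057, 0.057 and 0.091 FPKM in WT and 4.09 and 3.905 FPKM in 5xFAD, a log2 difference of 2.23 ± 0.16 (adjusted p = 2.65e-06). The WT values of Lox and Dkk2 were under 0.5 FPKM in each library, and the 5xFAD values were close to each other. The co-receptors Nrp1 and Nrp2 rose by 1.27 and 0.57, Thbs1 by 0.64 and Vegfb by 0.42, while Vegfa and Gas6 differed by -0.11 and -0.13 and did not pass. Timp3, Fn1, Ecm1 and Mmp2 fell by 1.55, 1.23, 0.62 and 0.56. In Timp3, Fn1 and Ecm1 the lowest WT library was replicate 2, as in the vascular marker sums, and in Mmp2 replicate 2 was the highest. Thbs1, Ecm1, Mmp2 and Vegfb lost the call without 5xFAD replicate 1 (adjusted p = 0.0514 to 0.23), and Timp3, Fn1, Ecm1, Mmp2 and Vegfb did so without 5xFAD replicate 2 (adjusted p = 0.0553 to 0.243). Timp3, Ecm1, Mmp2 and Vegfb lost the call without WT replicate 1 (adjusted p = 0.0664 to 0.104), and Mmp2 did so without WT replicate 2 (adjusted p = 0.118).

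Of 27 tested integrins, tetraspanins and adhesion genes 4 rose (14.8%) and 4 fell (14.8%, 4 and 5 without WT replicate 3, 3 and 1 without 5xFAD replicate 1, 3 and 0 without 5xFAD replicate 2, 4 and 0 without WT replicate 1, 4 and 11 at the same FPKM sum). Itga5, the alpha chain of the fibronectin receptor, was at 4.62, 4.67 and 3.92 FPKM in WT and 9.64 and 8.58 FPKM in 5xFAD, a log2 difference of 0.91 ± 0.13 (adjusted p = 0.000727). Cadm1, a cell adhesion molecule, was at 8.66, 8.36 and 8.71 FPKM in WT and 17.4 and 16.05 FPKM in 5xFAD, a log2 difference of 0.89 ± 0.11 (adjusted p = 0.000248). Itgb3 rose by 0.72 and Cd44 by 0.57, while Itga9, Itga1, Icam2 and Itgav fell by 0.90, 0.87, 0.72 and 0.36. Icam2 and Itga1 are also vascular genes, and Itga1 overlaps other genes, so its reads may be shared. Of 12 scavenger and phagocytic receptors 4 rose (33.3%) and 3 fell (25%, 4 and 3 without WT replicate 3, 2 and 3 without 5xFAD replicate 1, 3 and 0 without 5xFAD replicate 2). Mrc2, a collagen-binding mannose receptor, was at 12.3, 12.1 and 9.46 FPKM in WT and 28.2 and 24.4 FPKM in 5xFAD, a log2 difference of 1.15 ± 0.16 (adjusted p = 0.000593). Mrc1, the mannose receptor of border macrophages, was at 17.8, 21.3 and 14.1 FPKM in WT and 9.14 and 6.64 FPKM in 5xFAD, a log2 difference of -1.07 ± 0.20 (adjusted p = 0.00436). Scarb1 and Lrp12 rose by 0.55 and 0.44, Stab1 and Cd93 fell by 1.06 and 0.98, and Mertk, which engulfs dying cells, differed by -0.15 without passing. Mrc1 and Stab1 are also border macrophage markers, all 7 of which fell, and the part of such cells in these differences was not tested. Itga9, Itga1, Cd44, Scarb1, Lrp12 and Itgav lost the call without 5xFAD replicate 1 (adjusted p = 0.0591 to 0.136), and Mrc1, Stab1, Cd93, Itga9, Itga1, Icam2, Cd44, Scarb1 and Itgav did so without 5xFAD replicate 2 (adjusted p = 0.0571 to 0.205). Itga9, Itga1, Icam2 and Itgav lost the call without WT replicate 1 (adjusted p = 0.0558 to 0.0823), and Itga9 and Itgav did so without WT replicate 2 (adjusted p = 0.0638 to 0.0643).

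Semaphorins and their plexin receptors, guidance cues of axons and immune cells, had more members that fell than rose: of 17 tested, 1 rose and 5 fell (1 and 4 without WT replicate 3, 0 and 2 without 5xFAD replicate 1, 0 and 1 without 5xFAD replicate 2, 2 and 5 with the marker covariate). The lowered share was 29.4%, against 6.35% of all tested genes. Sema4b was at 8.61, 8.72 and 7.71 FPKM in WT and 3.24 and 3.22 FPKM in 5xFAD, a log2 difference of -1.14 ± 0.22 (adjusted p = 0.00461), and WT replicate 3 was close to the other WT libraries. Sema7a was at 12.9, 9.07 and 20.8 FPKM in WT and 5.54 and 4.14 FPKM in 5xFAD, a log2 difference of -1.32 ± 0.33 (adjusted p = 0.0193). Sema3c was at 3.33, 1.56 and 4.53 FPKM in WT and 0.839 and 0.833 FPKM in 5xFAD, a log2 difference of -1.103 ± 0.25 (adjusted p = 0.0111). Both were highest in WT replicate 3 and lowest among WT in replicate 2, the order of the endothelial sums, and the part of vascular RNA was not tested. The list median of -0.34 was -0.12 without WT replicate 3. The receptors Plxna1 and Plxna4 fell by 0.58 and 0.56. Plxnc1, the receptor for Sema7a, rose, at 0.791, 0.727 and 1.28 FPKM in WT and 1.92 and 1.902 FPKM in 5xFAD, a log2 difference of 0.60 ± 0.13 (adjusted p = 0.0083), and was the only raised member of the list. Sema7a, Sema3c, Plxnc1 and Plxna1 lost the call without 5xFAD replicate 1 (adjusted p = 0.0614 to 0.072), and Sema7a, Sema3c, Plxnc1, Plxna1 and Plxna4 did so without 5xFAD replicate 2 (adjusted p = 0.0543 to 0.272). Plxna1 lost the call without WT replicate 1 or WT replicate 3 (adjusted p = 0.0646 to 0.0758).

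Among complement and Fc receptor genes, which are abundant in microglia, shares of 7.14% raised and 7.14% lowered were near those of all tested genes (7.65% and 6.35%): of 14 tested, 1 rose and 1 fell (1 and 1 without WT replicate 3, 0 and 0 without 5xFAD replicate 1 or 5xFAD replicate 2 or WT replicate 1, 2 and 1 without WT replicate 2, 2 and 1 with the marker covariate, 0 and 3 at the same FPKM sum). C1qa was at 738, 802 and 465 FPKM in WT and 984 and 949 FPKM in 5xFAD (log2 difference 0.57, adjusted p = 0.159), and C3 differed by 0.43 (adjusted p = 0.485). C4b, known from reactive astrocytes as well as glia in general, was at 8.14, 10.4 and 13.8 FPKM in WT and 22.6 and 18.4 FPKM in 5xFAD, a log2 difference of 0.89 ± 0.26 (adjusted p = 0.0379). Cd59a, an inhibitor of the membrane attack complex, was at 3.38, 2.398 and 2.9 FPKM in WT and 1.02 and 0.925 FPKM in 5xFAD, a log2 difference of -0.97 ± 0.24 (adjusted p = 0.0191). Its lowest WT library was also that of the vascular marker sums, and the part of vascular RNA was not tested. Of 24 tested genes of oxidant production and iron 5 rose (20.8%) and 2 fell (8.33%, 4 and 3 without WT replicate 3, 3 and 2 without 5xFAD replicate 1, 4 and 1 without 5xFAD replicate 2, 5 and 6 at the same FPKM sum). Cybb, the catalytic subunit of the phagocyte NADPH oxidase, was at 2.36, 2.56 and 1.77 FPKM in WT and 9.803 and 8.24 FPKM in 5xFAD, a log2 difference of 1.64 ± 0.21 (adjusted p = 0.000319). Its partners Ncf1 and Ncf4 differed by -0.23 and -0.13 and did not pass. Iron genes moved in both directions: the ferritin light chain Ftl1 was at 173, 162 and 123 FPKM in WT and 318 and 289.7 FPKM in 5xFAD, a log2 difference of 1.003 ± 0.18 (adjusted p = 0.00305). The phagosomal iron transporter Slc11a1 was at 33.3, 35.9 and 23.7 FPKM in WT and 59.9 and 56.4 FPKM in 5xFAD, a log2 difference of 0.91 ± 0.17 (adjusted p = 0.00436). The iron exporter Slc40a1, ferroportin, fell, at 13.9, 12.2 and 9.61 FPKM in WT and 5.84 and 5.35 FPKM in 5xFAD, a log2 difference of -0.96 ± 0.14 (adjusted p = 0.000988). The ferroxidase Cp fell by 0.85, Hmox1 rose by 0.75, and Tfrc, the transferrin receptor, differed by -0.58 (adjusted p = 0.135). Cd59a, C4b and Hmox1 lost the call without 5xFAD replicate 1 (adjusted p = 0.0942 to 0.233), and Cd59a, C4b, Cp and Hmox1 did so without 5xFAD replicate 2 (adjusted p = 0.118 to 0.171). Cd59a and C4b lost the call without WT replicate 1 (adjusted p = 0.0663 to 0.124), and C4b did so without WT replicate 2 (adjusted p = 0.0724). Hmox1 lost the call without WT replicate 3 (adjusted p = 0.0606).

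Few cell cycle genes could be tested: 12 of 40 passed the filter on low values and of these 3 rose (25%) and none fell (3 and 0 without WT replicate 3, 0 and 0 without 5xFAD replicate 2, 3 and 1 at the same FPKM sum). Mki67, the proliferation antigen, was at 0.867, 0.89 and 0.705 FPKM in WT and 1.75 and 2.06 FPKM in 5xFAD, a log2 difference of 0.67 ± 0.13 (adjusted p = 0.00496). Mcm5, of the replicative helicase, was at 0.976, 1.095 and 0.923 FPKM in WT and 1.86 and 2.02 FPKM in 5xFAD, a log2 difference of 0.56 ± 0.11 (adjusted p = 0.00436). Hmgb2 was at 3.69, 2.66 and 2.47 FPKM in WT and 4.65 and 6.89 FPKM in 5xFAD, a log2 difference of 0.77 ± 0.19 (adjusted p = 0.0182). The mitotic genes Top2a, Cdk1 and Ccnb1 were below the filter. All 3 of these genes lost the call without 5xFAD replicate 2 (adjusted p = 0.0581 to 0.241).

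Homeostatic genes, the signature of resting microglia, depended on the choice of WT libraries. Of 30 tested 1 rose (3.33%) and 6 fell (20%, 1 and 18 without WT replicate 3, 1 and 1 without 5xFAD replicate 1 or 5xFAD replicate 2, 1 and 2 without WT replicate 1, 2 and 3 without WT replicate 2, 1 and 15 with the marker covariate, 1 and 15 at the same FPKM sum), and the median went from -0.32 to -0.51 without WT replicate 3. Tmem119, a membrane protein specific to microglia, was at 434, 461 and 300.01 FPKM in WT and 206 and 167 FPKM in 5xFAD, a log2 difference of -1.07 ± 0.28 (adjusted p = 0.0227). Crybb1, a crystallin gene of young and resting microglia, was at 112, 116 and 73.6 FPKM in WT and 40.2 and 28.04 FPKM in 5xFAD, a log2 difference of -1.52 ± 0.38 (adjusted p = 0.0182). Ecscr was at 25.2, 25.9 and 17.6 FPKM in WT and 10.03 and 11.6 FPKM in 5xFAD, a log2 difference of -1.002 ± 0.19 (adjusted p = 0.00436). Upk1b fell by 0.76 and Pmepa1 by 0.54. Serpine2 rose within the list, at 19.9, 19.2 and 17.1 FPKM in WT and 56.3 and 50.7 FPKM in 5xFAD, a log2 difference of 1.47 ± 0.14 (adjusted p = 3.3e-05). WT replicate 3 was the lowest WT library in Tmem119, Crybb1 and Ecscr, as in the summed microglia markers, and both 5xFAD libraries were lower still. Crybb1, Tmem119, Ecscr, Upk1b and Pmepa1 lost the call without 5xFAD replicate 1 (adjusted p = 0.0533 to 0.148), and Crybb1, Tmem119, Upk1b and Pmepa1 did so without 5xFAD replicate 2 or WT replicate 1 (adjusted p = 0.06 to 0.243). Tmem119, Upk1b and Pmepa1 lost the call without WT replicate 2 (adjusted p = 0.0511 to 0.122).

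P2ry12 and Selplg, a ligand of selectins, passed with WT replicate 3 left out but not with all libraries, and Cx3cr1 and Csf1r passed in neither case. P2ry12 went from -0.50 (adjusted p = 0.178) to -0.74 (adjusted p = 0.0146), Cx3cr1 from -0.31 (adjusted p = 0.401) to -0.51 (adjusted p = 0.0768) and Selplg from -0.56 (adjusted p = 0.18) to -0.81 (adjusted p = 0.0176). Csf1r, the survival receptor of microglia, had a difference of -0.21 with all libraries and -0.43 without (adjusted p = 0.12). The Ms4a genes, a family of tetraspanning membrane proteins that includes a locus linked to Alzheimer's disease in people, had 4 tested members, of which none rose and 2 fell (50%, 0 and 4 without WT replicate 3, 0 and 1 without 5xFAD replicate 1, 0 and 0 without 5xFAD replicate 2, 0 and 4 with the marker covariate). Ms4a4a was at 6.43, 5.12 and 3.603 FPKM in WT and 2.46 and 1.74 FPKM in 5xFAD, a log2 difference of -0.95 ± 0.20 (adjusted p = 0.00913). Ms4a6b was at 8.6, 7.298 and 4.67 FPKM in WT and 3.32 and 3.09 FPKM in 5xFAD, a log2 difference of -0.87 ± 0.20 (adjusted p = 0.0132), and Ms4a6c and Ms4a6d differed by -0.33 and -0.59 without passing. Reads may be divided among these paralogs. Ms4a6b lost the call without 5xFAD replicate 1 (adjusted p = 0.0683), and Ms4a4a and Ms4a6b did so without 5xFAD replicate 2 (adjusted p = 0.114 to 0.127).

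**Figure D5:**
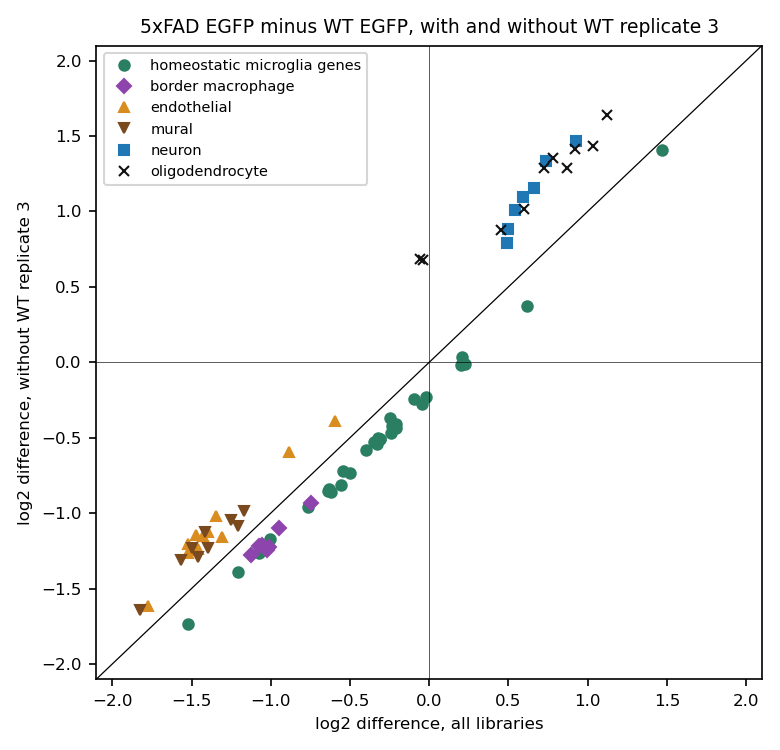
Log2 difference of each tested member of 6 lists with all libraries (horizontal) and without WT replicate 3 (vertical), with the line of equality. Neuron and oligodendrocyte markers lie above the line, homeostatic genes and border macrophage markers slightly below it, and endothelial and mural markers slightly above it but negative on both axes.

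Vascular genes were low in both 5xFAD libraries. Of 12 tested endothelial markers 10 fell and none rose, and without WT replicate 3, 9 fell, with medians of -1.44 and -1.15. With the 2 groups fitted alone 1 of the 12 fell. All 9 tested mural markers fell, and 7 of 9 without WT replicate 3, with medians of -1.41 and -1.23. With the 2 groups fitted alone 3 of the 9 fell. The endothelial sum in FPKM was 169, 95.6 and 224 in WT and 60.1 and 42.1 in 5xFAD, and the mural sum was 132, 70.1 and 155 in WT and 46 and 24.9 in 5xFAD. WT replicate 2 was the lowest WT library in both sums and still lay above both 5xFAD libraries. The other 5xFAD libraries held 58.6 to 120 FPKM of endothelial and 31.4 to 63 FPKM of mural markers, so at least 1 of them exceeded WT replicate 2 in endothelial markers. Rgs5, a regulator of G protein signalling in pericytes, was at 35.03, 15.8 and 34.95 FPKM in WT and 8.32 and 5.67 FPKM in 5xFAD, a log2 difference of -1.82 ± 0.31 (adjusted p = 0.00218). Ly6c1, a surface antigen of brain endothelium, was at 36.1, 16.6 and 34.5 FPKM in WT and 10.2 and 5.22 FPKM in 5xFAD, a log2 difference of -1.77 ± 0.37 (adjusted p = 0.00784). Abcb1a, the drug efflux pump of the blood-brain barrier, was at 15.8, 7.99 and 19.8 FPKM in WT and 4.78 and 3.495 FPKM in 5xFAD, a log2 difference of -1.52 ± 0.32 (adjusted p = 0.00753). Cldn5, a tight junction protein of that barrier, was at 27.5, 20.3 and 46.5 FPKM in WT and 12.05 and 7.76 FPKM in 5xFAD, a log2 difference of -1.52 ± 0.43 (adjusted p = 0.0323). Kdr and Flt1 differed by -0.60 and -0.88 and did not pass. Cldn5 lost the call without 5xFAD replicate 1 or WT replicate 1 or WT replicate 3 (adjusted p = 0.0654 to 0.0775), and Ly6c1, Abcb1a and Cldn5 did so without 5xFAD replicate 2 (adjusted p = 0.0974 to 0.266).

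Over the endothelial markers none rose and 10 fell (83.3%, 0 and 9 without WT replicate 3, 0 and 6 without 5xFAD replicate 1, 0 and 0 without 5xFAD replicate 2), and over the mural markers none rose and 9 fell (0 and 7 without WT replicate 3, 0 and 2 without 5xFAD replicate 2). Of the 12 most lowered genes whose groups did not overlap, Rgs5, Ly6c1 and Notch3 were on these lists. The other 9 were Igfbp7 (-1.67), Ahnak (-1.66), Pltp (-1.62), Cavin1 (-1.61), Spock2 (-1.603), Bcam (-1.57), Ltbp4 (-1.57), Id1 (-1.56) and Timp3 (-1.55). In all 12, WT replicate 2 was the lowest WT library, as in the vascular marker sums, and whether these genes were read from vascular RNA was not tested. Cavin1, the caveolar coat protein, was at 19.8, 13.4 and 25.8 FPKM in WT and 7.52 and 4.02 FPKM in 5xFAD, a log2 difference of -1.61 ± 0.33 (adjusted p = 0.00727). Igfbp7, a vascular matrix protein, was at 32.4, 18.7 and 35.95 FPKM in WT and 11.3 and 5.72 FPKM in 5xFAD, a log2 difference of -1.67 ± 0.37 (adjusted p = 0.0104). Spock2 lost the call without 5xFAD replicate 1 (adjusted p = 0.0563), and all 9 of these genes did so without 5xFAD replicate 2 (adjusted p = 0.101 to 0.24). Ltbp4 and Timp3 lost the call without WT replicate 1 (adjusted p = 0.0618 to 0.0664).

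Of 7 tested markers of border macrophages, which line the vessels and meninges, none rose and 7 fell (0 and 7 without WT replicate 3, 0 and 0 without 5xFAD replicate 2). With the 2 groups fitted alone 2 of the border macrophage markers fell. The markers of this list summed to 138, 150 and 100 FPKM in WT and 65 and 52.8 FPKM in 5xFAD. Here WT replicate 3 was the lowest of the WT libraries and still above both 5xFAD libraries, and the 8 other 5xFAD libraries held 39.2 to 62.6 FPKM. Cbr2, a carbonyl reductase, was at 9.32, 11.4 and 7.23 FPKM in WT and 4.78 and 2.79 FPKM in 5xFAD, a log2 difference of -1.12 ± 0.21 (adjusted p = 0.00402). Stab1, a scavenger receptor, was at 77.2, 82.5 and 57.3 FPKM in WT and 35.6 and 32.1 FPKM in 5xFAD, a log2 difference of -1.06 ± 0.22 (adjusted p = 0.00782). Pf4, platelet factor 4, was at 12.2, 13.3 and 7.695 FPKM in WT and 5.21 and 4.45 FPKM in 5xFAD, a log2 difference of -1.02 ± 0.31 (adjusted p = 0.046). Cd163, a haemoglobin scavenger receptor, F13a1 and Lyve1 fell by 1.01, 0.95 and 0.75. Ttr, the choroid plexus transcript, was at 2647, 2054 and 1016 FPKM in WT and 769 and 560.1 FPKM in 5xFAD (log2 difference -1.43, adjusted p = 0.248), and of 7 choroid plexus and ependymal markers only Ccdc153 passed, at 4.15, 4.31 and 12.2 FPKM in WT and 1.62 and 1.38 FPKM in 5xFAD. With the marker covariate 3 markers of this choroid plexus and ependymal list fell, and at the same FPKM sum 4 did. Without WT replicate 3 Ccdc153 and Folr1, a folate receptor, fell (differences -1.07 and -1.403, adjusted p = 0.0351 and 0.0363). Ccdc153 and Pf4 lost the call without 5xFAD replicate 1 (adjusted p = 0.107 to 0.141), and all 7 of these genes did so without 5xFAD replicate 2 (adjusted p = 0.0734 to 0.261). Pf4 and Lyve1 lost the call without WT replicate 1 (adjusted p = 0.0586 to 0.124), and Pf4 did so without WT replicate 2 (adjusted p = 0.117).

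A further 5 genes joined the 12 most lowered when WT replicate 3 was left out, namely Crybb1, Tgm2, Dok3, Cd209a and Gpr165. In each of these WT replicate 3 was the lowest WT library, unlike in the vascular marker sums. Tgm2, transglutaminase 2, was at 20.7, 21.8 and 19.05 FPKM in WT and 7.695 and 6.07 FPKM in 5xFAD, a log2 difference of -1.45 ± 0.23 (adjusted p = 0.00128), and -1.503 without WT replicate 3. Its 3 WT libraries lay within 19.05 to 21.8 FPKM. Cd209a, a C-type lectin of dendritic cells and border macrophages, was at 7.16, 8.31 and 4.07 FPKM in WT and 2.799 and 1.77 FPKM in 5xFAD, a log2 difference of -1.17 ± 0.27 (adjusted p = 0.0142). The 8 other 5xFAD libraries held 4.99 to 11.8 FPKM of Tgm2, 24.8 to 65.9 FPKM of Crybb1 and 0.927 to 2.32 FPKM of Cd209a, below the lowest WT library in each. Cd209a lost the call without 5xFAD replicate 2 or WT replicate 1 (adjusted p = 0.0502 to 0.169).

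Of 11 tested astrocyte markers 1 rose (9.09%) and none fell (1 and 0 without WT replicate 3, 0 and 0 without 5xFAD replicate 1, 3 and 1 with the marker covariate), with a median of -0.44 that was 0.00 without WT replicate 3. The raised one was Gfap, the intermediate filament of reactive astrocytes, at 16.3, 11.6 and 29.9 FPKM in WT and 74.6 and 50.3 FPKM in 5xFAD, a log2 difference of 1.72 ± 0.37 (adjusted p = 0.00868). It was highest among WT in replicate 3, as were the other astrocyte markers, and without that library the difference was 2.07. Thy1, whose promoter drives the transgenes, differed by 0.78 (adjusted p = 0.086) with all libraries and by 1.14 (adjusted p = 0.00125) without WT replicate 3, and the mouse gene App by -0.11 (adjusted p = 0.742). The Y-linked genes Ddx3y, Uty, Kdm5d and Eif2s3y did not pass, with differences of -0.08 to 0.06. They summed to 20.6, 17.0 and 17.2 FPKM in WT and 18.8 and 17.2 FPKM in 5xFAD, so each of these libraries held Y-linked RNA. Over the other 5xFAD libraries, which also enter the spread, the sum ran from 0.0108 to 19.3 FPKM. Gfap lost the call without 5xFAD replicate 1 (adjusted p = 0.0985).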

How the data were processed

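RNA of mouse microglia was sequenced, and the authors deposited 1 table of FPKM values with 19737 genes and a column for each of 13 libraries, not pooled. Per the submitters' processing notes, which give no role or order, the tools were HISAT2 2.1.0, Bowtie2 2.3.5 and featureCounts 1.5.1 and the build was mm10. The strand setting of the counting is not given in the sources used here. FPKM is relative to each library's total, so abundant genes that change can move the others.

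Libraries were grouped by their titles. The low values matched whole fragments for GENCODE M21 exon lengths in 91.1% to 92.5% of cases within 0.02 of a fragment, which gave depths of 45.19 to 69.9 M (mega) fragments. Gene positions are in GRCm38 (mm10). Genes with a mean of 1 FPKM or more were tested on log2(FPKM + 1) with limma 3.58.1 in R 4.3.3, with 1 mean for each of the 4 groups, 9 residual degrees of freedom, a mean-variance trend and Benjamini-Hochberg adjustment over all 10817 genes at 0.05. The fit was tested on simulated data.

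The gene lists and named genes were chosen with earlier results of these data known. The rule named up to 4 raised and 4 lowered genes of each list, the 12 most raised and 12 most lowered genes without overlap between groups outside the established markers, and the 12 most lowered without WT replicate 3. Other members that passed were named after their values were seen. The alternatives were another pseudocount (0.1), no filter, a minimum of 5 FPKM, 3 rescalings, array weights, a marker covariate, the 2 groups alone, a replicate block and each of the 5 libraries left out. Promoters came from RefSeq. Some genes are not reported here.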

Additional observations from a re-analysis of the deposited data

How the results depend on the processing

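Of the 366 members and named genes that passed, 135 kept their call under each of the 15 alternatives that tested them and 0 changed sign, where the minimum of 5 FPKM tested 293 of the 366. The calls lost numbered 187 with the 2 groups fitted alone, 163 without 5xFAD replicate 1, 154 without 5xFAD replicate 2, 56, 33 and 25 without WT replicates 1, 2 and 3, and at most 33 under any other alternative. Over all genes the 1514 calls became 862 with a minimum of 5 FPKM (242 lowered), which tests fewer genes, and 509 with the 2 groups alone (386 raised, 123 lowered), which has fewer libraries. They became 2430 with the marker covariate, the mean log2 level of the markers of 5 other cell types (1359 raised, 1071 lowered). With every library set to the same sum they became 3709 (3001 lowered), and array weights gave 1138 lowered genes. The cause was not tested. Leaving out 1 library gave 566 to 1998 calls, 391 to 969 raised and 79 to 1029 lowered. A replicate block in the model gave 1306 calls, sharing 1227 with the unblocked fit. The labels do not say that a number pairs libraries, and same-numbered libraries had correlated deviations of -0.03 and 0.27 across genes. The limits are 2 libraries in 5xFAD, a WT library rich in other brain cell RNA and FPKM values without counts.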
